A study of Mus musculus with 32 samples.

Results

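Lysosomes break down the cargo of endocytosis, phagocytosis and autophagy, and the genes described here encode the parts of that system: the V-ATPase proton pump, the cathepsins and other acid hydrolases, lysosomal membrane proteins, the core autophagy (Atg) proteins, and the MiT/TFE transcription factors. They were chosen by gene name on the array. The rule took the genes whose names begin with Atp6v0, Atp6v1 or Atg and a digit, and the cathepsins Ctsa, Ctsb, Ctsc, Ctsd, Ctsh, Ctsk, Ctsl, Ctss and Ctsz. It also took Lamp1, Lamp2, Tfeb, Tfe3, Mitf, Mcoln1, Gaa, Gla, Glb1, Hexa, Neu1, Gusb, Lipa, Psap, Grn, Sqstm1, Becn1, Ulk1, Wipi1 and Map1lc3b. The array carried 68 such genes among 24082 genes with a symbol, and each was represented by its brightest probe. Of these, 64 passed the filter on dim probes, which kept a probe that was well above background on at least 50% of the arrays, as did 16037 genes of the whole array. The genes Atg4a, Atp6v0a4, Atp6v1b1 and Atp6v1c2 did not pass and were not tested. Atg9b and Atp6v0e2 passed with 16 of 32 arrays, Atp6v1g3 with 25 and Atg2b with 27, and the other members were well above background on all 32 arrays.

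The genes were measured in bone marrow-derived macrophages (BMDMs) of WT C57BL/6 mice and of Ifnar1-/- mice, whose cells cannot form the receptor for type I interferons. No other allele is named in the labels. All cells had been differentiated for 6 days with 5 ng/mL M-CSF, and untreated cells were compared with cells treated for 6 h. The labels give 100 ng/mL for LPS, a ligand of TLR4, and 1000 U/mL for IFNβ. The caspase inhibitor zVAD-fmk (zVAD) was given alone, with LPS and with IFNβ, the latter combinations being stimuli of necroptosis. Nec-1, an inhibitor of RipK1, was added to both combinations. The study's own text gives LPS and IFNβ at lower doses than the labels, and the ages of the mice are not given in the sources used here. The 8 treatments and 2 genotypes form 16 groups of 2 arrays, and this number limits the precision of every value. Nothing in the labels says that the 2 samples of a group came from separate mice or cultures, so p-values measure the spread between these samples, which may be technical. The 4 slides each held the 8 treatments of 1 genotype with 1 replicate number, so the levels of WT and Ifnar1-/- cells cannot be told apart from slide effects. WT replicate 1 was scanned on day 1, WT replicate 2 on day 2 and both Ifnar1-/- replicates on day 3. Treatment effects lie within slides, so a constant shift of a slide cancels in them and in their difference between the genotypes. An effect of slide or scan day on the size of changes would not cancel in that difference and was not tested.

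The V-ATPase pumps protons into the lysosome through a membrane sector, V0, that is driven by an ATP-hydrolysing cytosolic sector, V1, and the acid pH activates the hydrolases. TFEB, TFE3 and MITF are basic helix-loop-helix factors that are held in the cytoplasm when mTORC1 is active and that otherwise enter the nucleus and bind E-box sequences near many lysosomal genes. Autophagy begins with the ULK1 kinase complex and proceeds through lipid phosphorylation and membrane supply. It also uses 2 conjugation reactions, which attach ATG12 to ATG5 and lipid to LC3. Macrophages hold many lysosomes, and LPS and interferons are known to reshape their degradative and antigen-processing functions.

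Promoter sequences are shown because the MiT/TFE factors are known to bind the E-box named above near many lysosomal genes. In RefSeq (GRCm38.p6), 57 of the 68 genes had a window of 250 bases before to 50 bases after the transcription start. The palindromic letters CACGTG occurred in 16 of these 57 genes (28.1%) against 8.09% of 27025 genes with a window, and the longer TCACGTG, searched on both strands and always overlapping the former, occurred in 14 (24.6%) against 4.29%. A match of letters is a description of the sequence and no evidence of binding. Those shown were picked from the members with the longer match. The members below are a membrane protein, a calcium channel, a hydrolase and a subunit of each V-ATPase sector, and each sequence is the 250 bases before the start, 5′ to 3′ on the coding strand, with TCACGTG and its reverse complement in capitals.
Lamp1 (chr8:13158911-13159160, + strand): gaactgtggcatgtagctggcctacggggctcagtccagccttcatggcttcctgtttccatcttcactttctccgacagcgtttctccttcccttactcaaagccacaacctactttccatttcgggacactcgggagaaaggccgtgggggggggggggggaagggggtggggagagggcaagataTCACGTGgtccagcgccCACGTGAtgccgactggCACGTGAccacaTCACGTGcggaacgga
Mcoln1 (chr8:3500269-3500518, + strand): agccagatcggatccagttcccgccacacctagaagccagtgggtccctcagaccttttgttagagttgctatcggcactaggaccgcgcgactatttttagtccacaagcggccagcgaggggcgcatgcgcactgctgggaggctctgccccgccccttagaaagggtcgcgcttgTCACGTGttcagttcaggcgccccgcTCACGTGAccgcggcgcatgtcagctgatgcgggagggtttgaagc
Gaa (chr11:119267713-119267962, + strand): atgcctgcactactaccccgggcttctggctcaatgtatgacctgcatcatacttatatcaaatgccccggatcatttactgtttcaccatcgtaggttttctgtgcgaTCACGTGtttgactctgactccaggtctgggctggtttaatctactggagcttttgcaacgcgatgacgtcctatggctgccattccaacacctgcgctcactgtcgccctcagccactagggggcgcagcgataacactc
Atp6v1a (chr16:44139260-44139509, − strand): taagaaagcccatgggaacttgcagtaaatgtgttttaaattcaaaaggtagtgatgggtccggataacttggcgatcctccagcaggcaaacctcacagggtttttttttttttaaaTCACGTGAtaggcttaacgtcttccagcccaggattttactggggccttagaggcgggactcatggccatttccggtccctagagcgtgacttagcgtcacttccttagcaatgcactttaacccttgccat
Atp6v0b (chr4:117887330-117887579, − strand): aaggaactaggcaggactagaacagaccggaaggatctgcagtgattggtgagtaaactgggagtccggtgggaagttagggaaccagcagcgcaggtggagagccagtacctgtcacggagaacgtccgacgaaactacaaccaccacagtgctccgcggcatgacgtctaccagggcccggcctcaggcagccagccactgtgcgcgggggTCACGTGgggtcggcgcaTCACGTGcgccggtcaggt
Lamp1 held 4 copies, Mcoln1 and Atp6v0b held 2, and Gaa and Atp6v1a held 1. These genes did not move together. Gaa fell with LPS in both genotypes. In Ifnar1-/- cells that call was lost under another scaling of the arrays, and another probe of Gaa went the other way. In WT cells Mcoln1 and Atp6v1a fell with LPS, a call that Atp6v1a lost under another scaling. Both rose when zVAD was added to LPS, in a comparison that shares the LPS arrays. Atp6v0b was not called with LPS in WT cells and rose when zVAD was added. The direction of Lamp1 with IFNβ and with LPS+zVAD depended on the scaling.

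The share of probes well above background was 55.6% to 78.3% per WT array and 45.4% to 62.1% per Ifnar1-/- array. Ifnar1 itself read 14.22 and 14.19 (log2 intensity, replicates 1 and 2) in untreated WT cells and 11.89 and 11.87 in untreated Ifnar1-/- cells. Over all arrays this probe did not separate the genotypes, with 9.02 to 14.76 on WT and 11.16 to 12.44 on Ifnar1-/- arrays, since the libraries labelled WT LPS+zVAD replicates 1 and 2 (12.38 and 11.18) and WT IFNβ+zVAD+Nec-1 replicate 1 (9.02) read no higher than the highest Ifnar1-/- array. The other 2 Ifnar1 probes did, with 9.94 to 11.88 against 7.29 to 8.73 and 7.88 to 10.23 against 5.82 to 7.35. The interferon-induced gene Ifit1 read 16.73 and 16.43 in WT cells with IFNβ against 4.41 and 2.39 in Ifnar1-/- cells with IFNβ, and it read 16.72 to 17.18 on the 3 WT arrays named. Replicate arrays of a group correlated at 0.973 to 0.991 except for the 2 arrays of Ifnar1-/- LPS+zVAD+Nec-1 (0.947), of which replicate 1 was most like the LPS arrays and replicate 2 most like the IFNβ+zVAD+Nec-1 arrays. Their Tnf, a gene that LPS induces, read 15.92 in replicate 1 and 9.99 in replicate 2, against 17.51 and 17.66 in Ifnar1-/- cells with LPS. That group entered no comparison, but it shares in the normalisation, the filter, the choice of probes and the estimate of the spread. Ifnar1-/- zVAD replicate 1 also stood apart from replicate 2 in Tnf (12.84 against 10.13) and Ifit1 (8.21 against 2.23). All 8 macrophage markers measured were well above background on every array, and their summed level lay between 19.63 and 20.10 in log2 units. Of 8 neutrophil and precursor markers, 7 were above background on every array, with a summed level of 13.50 to 15.56 in WT and 15.66 to 16.84 in Ifnar1-/- arrays. Of 4 stromal markers, 3 were above background on every array. Their sum was 8.58 to 10.14 in WT and 10.81 to 12.59 in Ifnar1-/- arrays. For 4 T cell markers, 2 of them above background on every array, it was 12.24 to 13.47 in WT and 11.83 to 13.16 in Ifnar1-/- arrays. The sum of 3 dendritic cell markers, none of which was above background on every array, rose with LPS. It was 7.36 to 7.48 in untreated and 9.85 to 10.36 in LPS-treated WT arrays. In Ifnar1-/- arrays it was 6.83 to 7.38 untreated and 8.47 to 9.63 with LPS. The part of these markers in the results was not tested, and in bulk RNA fewer cells of a type and less RNA per cell cannot be told apart.

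The scaling of the arrays matters for the direction of small changes in this gene set, whose members are mostly bright. With the quantile normalisation of the study, the 16037 genes tested shifted by a median of -0.08 with LPS, -0.17 with IFNβ and -0.15 with LPS+zVAD in WT cells. When each array was instead shifted to a common 75th percentile, these medians were 0.07, -0.02 and 0.12, each of them higher than before. The medians of the 64 members moved further. They went from -0.60 to -0.09 (LPS), -0.35 to 0.09 (IFNβ) and -0.14 to 0.41 (LPS+zVAD). The split of calls under this shift is therefore given beside the main splits. Of all genes, this shift called 37.1% with LPS, 29.4% with IFNβ and 46.9% with LPS+zVAD in WT cells. Of these calls 50.2%, 50.1% and 45.8% were higher. In Ifnar1-/- cells it called 21.8% with LPS and 23.6% with LPS+zVAD, 53.9% and 48.3% of them higher. When zVAD was added to LPS it called 32.9% in WT and 6.04% in Ifnar1-/- cells, 39.6% and 56.8% of them higher. For Nec-1 added to LPS+zVAD in WT cells it called 25.6%, 61.3% of them higher. Values below are quantile-normalised log2 intensities on the replicate 1 and replicate 2 arrays, changes are log2 fold changes with their standard error (SE), and a gene with a Benjamini-Hochberg adjusted p under 0.05 in limma over all genes is called. Where leaving out an array ended a call, the largest adjusted p of those refits follows, with the array where only 1 did so. In the 13 treatment comparisons 220 values were called. In all of them the 2 arrays of the groups compared did not overlap, which also gives the change the same sign on both slides. The calls were made from these same arrays, so this is no separate support for them.

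**Figure D1:**
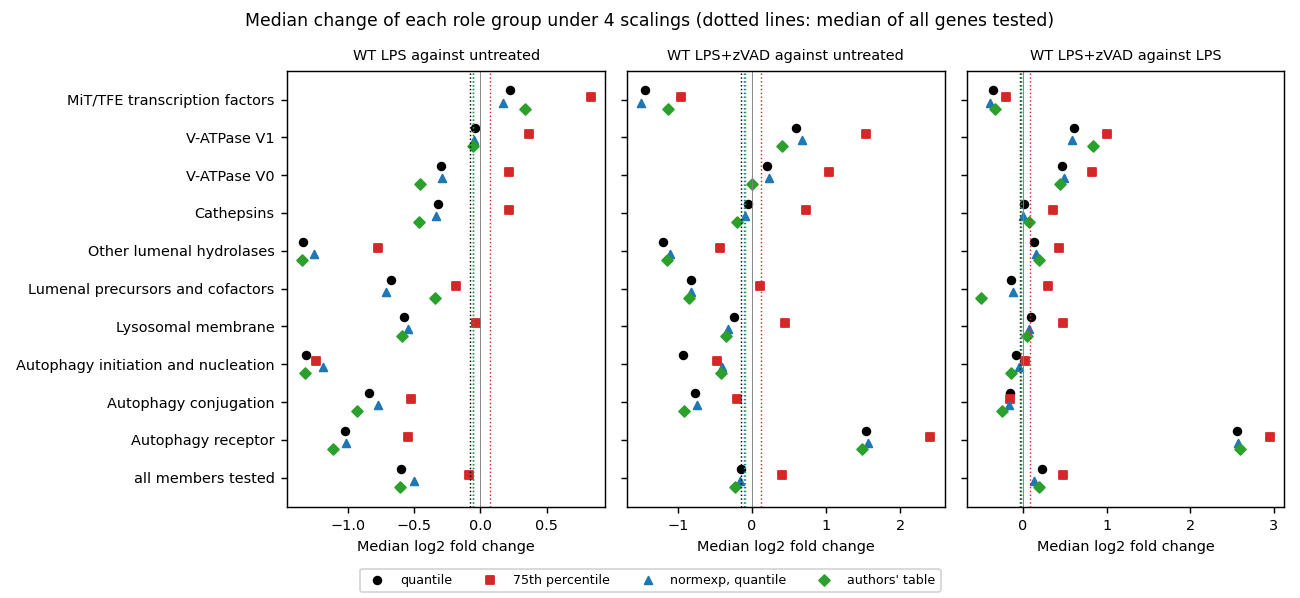
Median log2 fold change of each role group (rows) and of all members tested in 3 comparisons of WT cells (panels). Symbols give the scaling (quantile, shift to the 75th percentile, normexp background with quantile, the authors' table), and dotted lines give the median of all genes under each. With LPS, the hydrolases and the autophagy groups lie below 0 under each scaling, whereas the cathepsins and V-ATPase sectors lie above 0 only with the 75th percentile shift.

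LPS lowered more of these genes than it raised, and this held in both genotypes. In WT cells 8 of 64 members rose and 31 fell, where 41.2% of all genes were called (16.3% higher and 24.8% lower), and the median change of the members was -0.60. The falls were spread over the autophagy initiation genes (6 of 9 fell and 0 rose, median -1.32), the lumenal hydrolases other than cathepsins (6 of 7 fell and 0 rose, median -1.33) and the conjugation genes (6 of 11 fell and 3 rose). Of the cathepsins 3 of 9 fell and 1 rose, and of the V-ATPase subunits 3 of 11 fell and 2 rose in V1 and 3 of 8 fell and 1 rose in V0. In Ifnar1-/- cells 5 members rose and 22 fell, where 24.8% of all genes were called (10.9% higher and 13.9% lower), with a median of -0.39, and 5 of 7 hydrolases were lower and 0 higher. The WT and Ifnar1-/- comparisons share no arrays. Of the genes that fell, 17 did so in both genotypes, which is 54.8% of the 31 in WT and 77.3% of the 22 in Ifnar1-/- cells. Those that rose in both were Ctsc, Atp6v1e1 and Atp6v1h. The matching overlap over all genes was not counted, so these shares are not read as particular to the members. With the 75th percentile shift the split was 10 higher and 16 lower in WT and 5 higher and 6 lower in Ifnar1-/- cells.

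**Figure D2:**
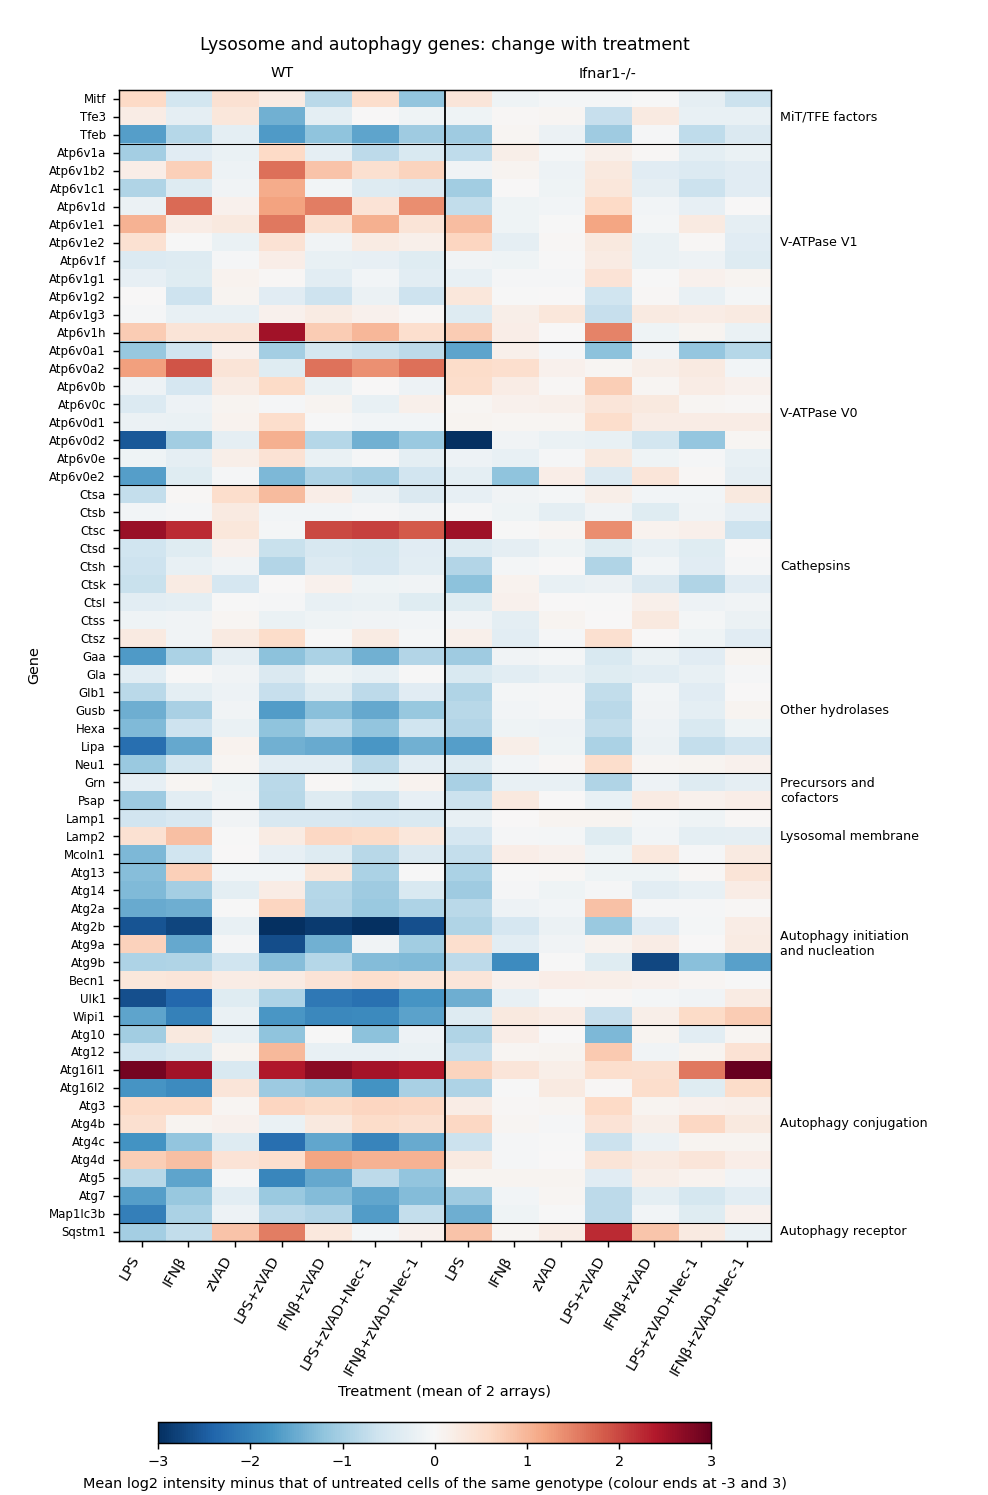
Change of each of the 64 members tested (rows, grouped by role) with each treatment (columns), as the mean log2 intensity of 2 arrays minus that of untreated cells of the same genotype. Colours end at -3 and 3. In WT cells blue prevails among the hydrolases and the initiation genes with LPS and with IFNβ, and V-ATPase subunits turn red with LPS+zVAD. The Ifnar1-/- columns without LPS are nearly white for most genes.

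With IFNβ alone fewer members were called in WT cells than with LPS, and none was called in Ifnar1-/- cells. In WT cells 8 members rose and 18 fell, where 35.3% of all genes were called (13.7% higher and 21.6% lower), and 5 of the 7 hydrolases and 5 of the 9 initiation genes were among those lower. The split with the 75th percentile shift was 10 higher and 9 lower. The LPS and IFNβ comparisons share the untreated arrays, so their values are given side by side below and their overlap is not read. By contrast, IFNβ in Ifnar1-/- cells changed 0 members by limma, where 0% of all genes were called. An unadjusted p under 0.05 was found for 2 members and for 1.58% of all genes. For zVAD alone limma called 0 members in WT cells, where 0.00624% of all genes were called, with 2 members and 5.62% of all genes at an unadjusted p under 0.05. In Ifnar1-/- cells zVAD also gave 0 by limma, where 0% of all genes were called, with 0 members and 0.38% of all genes at an unadjusted p under 0.05. Every alternative fit also gave 0 for these 3 comparisons.

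LPS+zVAD, the necroptosis stimulus, was also compared with untreated cells. In WT cells 17 members rose and 22 fell, where 50.9% of all genes were called (18.3% higher and 32.7% lower). Of the 11 V1 subunits 6 rose and 0 fell, and of the 8 V0 subunits 3 rose and 1 fell, while 5 of the 7 hydrolases fell and 0 rose. In Ifnar1-/- cells 11 rose and 12 fell, where 28.2% of all genes were called (11% higher and 17.2% lower), with 3 of 11 V1 subunits higher and 4 of 7 hydrolases lower. With the authors' normalised table the WT split was 9 higher and 21 lower, where 43.3% of all genes were called, 37% of them higher. With the 75th percentile shift the splits were 23 higher and 11 lower in WT and 11 higher and 3 lower in Ifnar1-/- cells. All 12 genes that fell in Ifnar1-/- cells (100%) were among the 22 of WT cells (54.5%). In both genotypes 10 genes rose (58.8% of the WT and 90.9% of the Ifnar1-/- genes), among them Sqstm1, Atg12, Atg2a, Atp6v1d, Atp6v1e1 and Atp6v1h. Here too the overlap over all genes was not counted, so the shares are not read as particular to the members.

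The direct comparison of LPS+zVAD with LPS asked what caspase inhibition added, and here the members moved mostly up. It shares the LPS arrays with the comparison of LPS with untreated cells, so opposite signs in these 2 are not independent. In WT cells 24 rose and 7 fell, where 34.6% of all genes were called (12.9% higher and 21.7% lower), with a median of 0.22 against -0.04 for all genes. Of the V1 subunits 7 of 11 rose and 0 fell, and of the V0 subunits 5 of 8 rose and 1 fell. The 75th percentile shift gave 24 higher and 6 lower. In Ifnar1-/- cells 10 rose and 1 fell, where 8.25% of all genes were called (4.58% higher and 3.67% lower). With the slide as a block the count of 11 became 24, with 21 higher and 3 lower. The block also called 19.5% of all genes, 46.1% of them higher. The 75th percentile shift gave 5 and 2. A fit of only the arrays compared called 10.7% of all genes in WT and 12.8% in Ifnar1-/- cells. The larger share in WT cells was thus not seen without the spread pooled over all groups. Over all genes, the SD of the difference between replicate arrays was 0.51 to 0.78 in WT groups. It was 0.44 to 0.59 in Ifnar1-/- groups, except LPS+zVAD+Nec-1 (1.08). The main fit used 1 spread for both genotypes, so a call in WT and none in Ifnar1-/- cells is not by itself a difference between them. Of the genes that rose, 9 did so in both genotypes (37.5% of the WT and 90% of the Ifnar1-/- genes), again without a count of the overlap over all genes. They were Atg12, Atg2a, Atp6v0d2, Atp6v1a, Atp6v1c1, Atp6v1d, Atp6v1h, Neu1 and Ulk1, and Ctsc fell in both. In contrast, zVAD added to IFNβ in WT cells changed 0 members by limma, where 0% of all genes were called, with 1 member and 3.97% of all genes at an unadjusted p under 0.05.

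Nec-1 added to LPS+zVAD in WT cells lowered 16 members and raised 8, where 28.5% of all genes were called (18.7% higher and 9.78% lower). The V1 subunits fell in 6 of 11 cases and the V0 subunits in 4 of 8, with 1 V0 subunit higher. The 75th percentile shift gave 6 higher and 18 lower, and a fit of only the 4 arrays compared called 0. This comparison uses the same LPS+zVAD arrays as the preceding one, so opposite signs in the 2 comparisons are not independent. Nec-1 added to IFNβ+zVAD changed 0 members by limma, where 0% of all genes were called, with 1 member and 3.82% of all genes at an unadjusted p under 0.05.

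The difference between the genotypes was tested as an interaction, the change in Ifnar1-/- cells minus that in WT cells. For LPS 2 members were called, both lower, where 6.63% of all genes were called (3.03% higher and 3.6% lower). These were the LC3 conjugation gene Atg16l1, at -2.22 (SE 0.49, adjusted p = 0.00876, 0.0549 without WT untreated replicate 1), and the membrane protein gene Lamp2, at -0.98 (SE 0.26, adjusted p = 0.0248, up to 0.117 in leave-one-out). For LPS+zVAD 6 were called, 3 higher and 3 lower, where 16.1% of all genes were called (11.3% higher and 4.78% lower), and with the 75th percentile shift 2 were higher and 6 lower. Higher were Atg9a at 2.76 (SE 0.52, adjusted p = 0.00138), Atg5 at 1.61 (SE 0.40, adjusted p = 0.00896) and Lamp1 at 0.55 (SE 0.19, adjusted p = 0.0496, up to 0.164 in leave-one-out). Lower were Atg16l1 at -1.90 (SE 0.49, adjusted p = 0.0114, up to 0.0645 in leave-one-out), Atp6v1b2 at -1.35 (SE 0.34, adjusted p = 0.0102, 0.0674 without WT LPS+zVAD replicate 2) and Atp6v1h at -1.04 (SE 0.29, adjusted p = 0.0176, up to 0.0973 in leave-one-out). With the slide as a block these counts were 8 and 17, and Atg2b, Atg4c, Atg5, Atp6v0b, Neu1 and Wipi1 were added for LPS. Of all genes the block called 16.8% and 30.8%, and the 75th percentile shift called 13.3% for LPS+zVAD (61.7% of them higher). The interaction of Lamp1 turned to -0.05 with the 75th percentile shift.

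**Figure D3:**
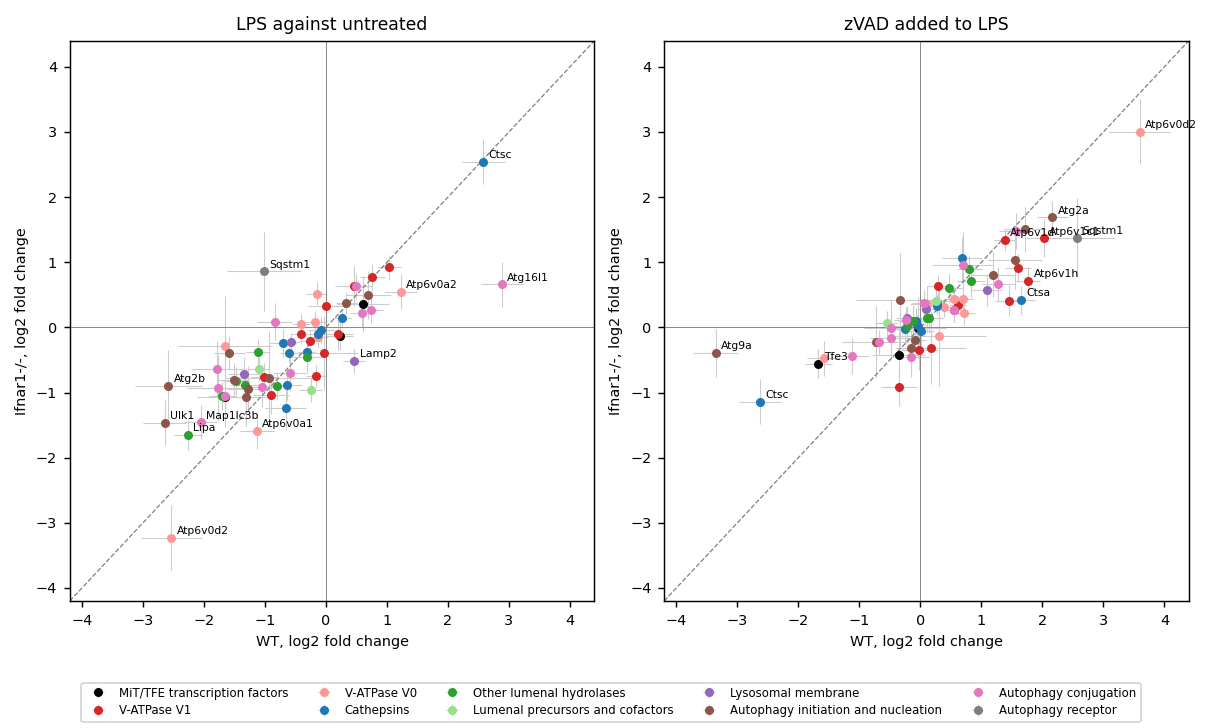
Log2 fold change of each member tested in Ifnar1-/- cells (vertical axis) against that in WT cells (horizontal axis), for LPS against untreated (left) and zVAD added to LPS (right). Colours give the role, bars give the SE of limma, and the dashed line marks equal change. Lipa and Ctsc lie near the line with LPS, whereas Atg16l1 at 2.88 in WT lies well below it. With zVAD, Atp6v0d2 is highest on both axes and Atg9a, at -3.36 in WT, lies above the line.

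The MiT/TFE factors did not move as a group. Tfeb, the best known regulator of lysosome formation, read in WT cells 10.51 and 10.71 without treatment, 10.23 and 10.42 with zVAD, 8.35 and 9.57 with LPS, 8.78 and 9.05 with LPS+zVAD, and 8.24 and 9.79 with LPS+zVAD+Nec-1. WT Tfeb read 9.45 and 10.06 with IFNβ, 8.95 and 9.84 with IFNβ+zVAD, and 9.08 and 10.02 with IFNβ+zVAD+Nec-1. Ifnar1-/- Tfeb read 11.42 and 11.60 without treatment, 11.10 and 11.54 with zVAD, 10.24 and 10.64 with LPS, 10.25 and 10.61 with LPS+zVAD, and 10.25 and 11.26 with LPS+zVAD+Nec-1. Ifnar1-/- Tfeb read 11.505 and 11.62 with IFNβ, 11.40 and 11.53 with IFNβ+zVAD, and 10.98 and 11.14 with IFNβ+zVAD+Nec-1. WT Tfeb fell by 1.65 with LPS (SE 0.47, adjusted p = 0.0079, up to 0.157 in leave-one-out) and fell by 1.69 with LPS+zVAD (SE 0.47, adjusted p = 0.00497), and both treated pairs lay below the untreated pair. The Ifnar1-/- changes of Tfeb were -1.07 with LPS (adjusted p = 0.107) and -1.07 with LPS+zVAD (adjusted p = 0.0949), and both were called with the slide as a replicate block (adjusted p = 0.00613 and 0.00528). Tfe3, its close relative, was close to the untreated level with LPS and low with LPS+zVAD. In WT cells Tfe3 read 15.06 and 14.70 without treatment, 15.16 and 15.26 with zVAD, 14.93 and 15.29 with LPS, 13.80 and 13.08 with LPS+zVAD, and 14.87 and 14.91 with LPS+zVAD+Nec-1. WT Tfe3 read 14.39 and 14.86 with IFNβ, 14.50 and 14.67 with IFNβ+zVAD, and 14.53 and 14.999 with IFNβ+zVAD+Nec-1. Ifnar1-/- Tfe3 read 14.73 and 14.63 without treatment, 14.78 and 14.69 with zVAD, 14.56 and 14.56 with LPS, 13.94 and 14.05 with LPS+zVAD, and 14.39 and 14.52 with LPS+zVAD+Nec-1. Ifnar1-/- Tfe3 read 14.77 and 14.65 with IFNβ, 14.99 and 14.91 with IFNβ+zVAD, and 14.64 and 14.30 with IFNβ+zVAD+Nec-1. WT Tfe3 fell by 1.45 with LPS+zVAD (SE 0.22, adjusted p = 2.35e-05) and fell by 1.67 when zVAD was added to LPS (SE 0.22, adjusted p = 1.45e-05). WT Tfe3 rose by 1.45 when Nec-1 was added to LPS+zVAD (SE 0.22, adjusted p = 8.92e-05), and in Ifnar1-/- cells it fell by 0.69 with LPS+zVAD (SE 0.22, adjusted p = 0.0269, up to 0.149 in leave-one-out), a call that was lost with the 75th percentile shift. Mitf, which also directs melanocyte and osteoclast genes, was called in no comparison. WT Mitf read 14.38 and 14.53 without treatment, 14.54 and 15.30 with zVAD, 15.01 and 15.12 with LPS, 15.02 and 14.39 with LPS+zVAD, and 14.92 and 15.06 with LPS+zVAD+Nec-1. WT Mitf read 13.52 and 14.30 with IFNβ, 12.90 and 14.38 with IFNβ+zVAD, and 12.53 and 14.003 with IFNβ+zVAD+Nec-1. Ifnar1-/- Mitf read 14.81 and 14.83 without treatment, 14.70 and 14.82 with zVAD, 15.07 and 15.28 with LPS, 14.65 and 14.87 with LPS+zVAD, and 14.82 and 14.29 with LPS+zVAD+Nec-1. Ifnar1-/- Mitf read 14.53 and 14.83 with IFNβ, 14.81 and 14.82 with IFNβ+zVAD, and 14.08 and 14.26 with IFNβ+zVAD+Nec-1. Its change was 0.61 with LPS (adjusted p = 0.291) in WT and 0.36 with LPS (adjusted p = 0.64) in Ifnar1-/- cells, with the LPS arrays above the untreated arrays in each genotype.

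**Figure D4:**
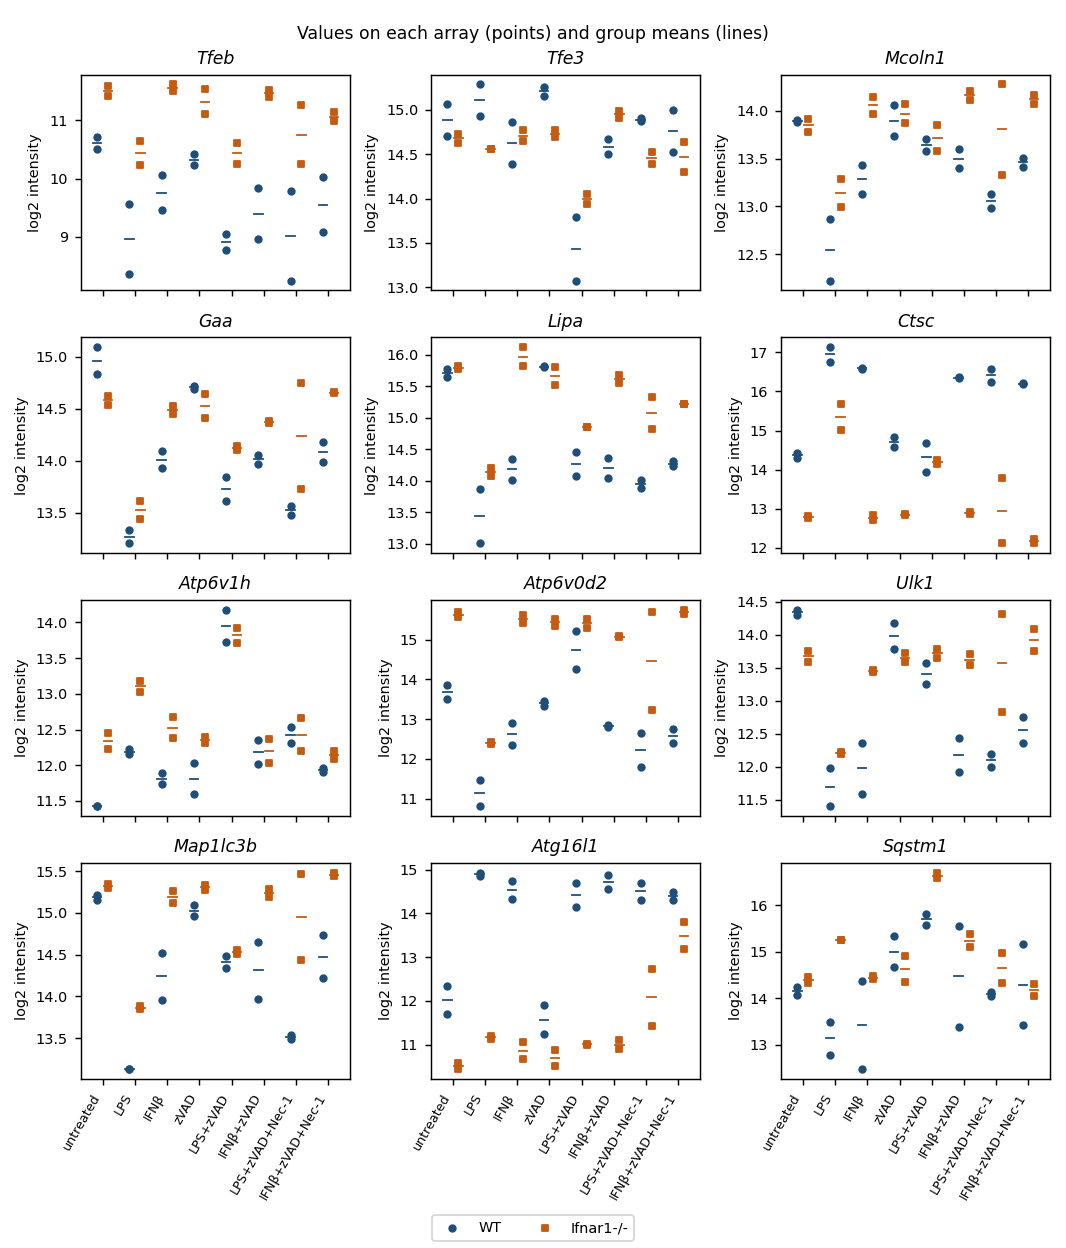
Log2 intensity of 12 members on each array (points, circles for WT and squares for Ifnar1-/-) with the group mean (line), for the 8 treatments of each genotype. Lipa, Gaa and Ulk1 lie lower with LPS than without in both genotypes, Ctsc lies higher, and Atg16l1 rises to above 14 with LPS or IFNβ in WT cells and stays near 11 in the Ifnar1-/- cells with the same 2 treatments. The 2 squares of LPS+zVAD+Nec-1 lie far apart in most panels.

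With quantile normalisation most hydrolases fell with LPS in both genotypes, with 6 of 7 lower in WT and 5 of 7 in Ifnar1-/- cells. The 75th percentile shift kept these calls for Lipa, Gaa and Gusb in WT cells but only that of Lipa in Ifnar1-/- cells. Lipa, which encodes the acid lipase that hydrolyses cholesteryl esters and triglycerides, read 15.77 and 15.64 without treatment, 13.87 and 13.01 with LPS, 14.35 and 14.01 with IFNβ, and 14.46 and 14.08 with LPS+zVAD in WT cells. It fell by 2.27 with LPS (SE 0.23, adjusted p = 8.28e-07) and fell by 1.53 with IFNβ (SE 0.23, adjusted p = 5.35e-05). WT Lipa fell by 1.43 with LPS+zVAD (SE 0.23, adjusted p = 4.3e-05). The WT value with LPS corresponds to a 4.81-fold lower level. Ifnar1-/- Lipa read 15.82 and 15.77 without treatment, 14.08 and 14.21 with LPS, 16.12 and 15.81 with IFNβ, and 14.84 and 14.85 with LPS+zVAD, and it fell by 1.65 with LPS (SE 0.23, adjusted p = 0.000105) and fell by 0.94 with LPS+zVAD (SE 0.23, adjusted p = 0.00529). When zVAD was added to LPS in WT cells Lipa rose by 0.83 (adjusted p = 0.00895), to a level still under that of untreated cells. Gaa, the acid glucosidase that degrades glycogen, read in WT cells 14.84 and 15.09 without treatment, 14.72 and 14.69 with zVAD, 13.33 and 13.20 with LPS, 13.61 and 13.85 with LPS+zVAD, and 13.48 and 13.57 with LPS+zVAD+Nec-1. WT Gaa read 14.09 and 13.93 with IFNβ, 13.97 and 14.05 with IFNβ+zVAD, and 14.18 and 13.99 with IFNβ+zVAD+Nec-1. Ifnar1-/- Gaa read 14.54 and 14.62 without treatment, 14.41 and 14.65 with zVAD, 13.44 and 13.61 with LPS, 14.10 and 14.15 with LPS+zVAD, and 13.73 and 14.75 with LPS+zVAD+Nec-1. Ifnar1-/- Gaa read 14.45 and 14.52 with IFNβ, 14.36 and 14.38 with IFNβ+zVAD, and 14.65 and 14.66 with IFNβ+zVAD+Nec-1. WT Gaa fell by 1.70 with LPS (SE 0.22, adjusted p = 7.35e-06) and fell by 0.96 with IFNβ (SE 0.22, adjusted p = 0.00199). WT Gaa fell by 1.23 with LPS+zVAD (SE 0.22, adjusted p = 9.74e-05). Ifnar1-/- Gaa fell by 1.06 with LPS (SE 0.22, adjusted p = 0.00159), where another probe of Gaa went the other way (0.43). The WT groups treated with LPS or IFNβ all lay below both untreated arrays.

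Gusb, the β-glucuronidase gene, read 15.60 and 15.66 without treatment, 14.19 and 14.13 with LPS, 14.64 and 14.66 with IFNβ, and 14.06 and 13.84 with LPS+zVAD in WT cells. Ifnar1-/- Gusb read 16.32 and 16.38 without treatment, 15.55 and 15.51 with LPS, and 15.46 and 15.62 with LPS+zVAD. WT Gusb fell by 1.47 with LPS (SE 0.22, adjusted p = 3.16e-05) and fell by 0.98 with IFNβ (SE 0.22, adjusted p = 0.00167). WT Gusb fell by 1.68 with LPS+zVAD (SE 0.22, adjusted p = 3.22e-06). The Ifnar1-/- values of Gusb fell by 0.83 with LPS (SE 0.22, adjusted p = 0.00848, up to 0.0565 in leave-one-out) and fell by 0.81 with LPS+zVAD (SE 0.22, adjusted p = 0.00881, up to 0.079 in leave-one-out), and another probe of Gusb gave 0.28 for the latter. Hexa encodes the α-subunit of the enzyme that degrades GM2 ganglioside. It read 16.65 and 16.91 without treatment, 15.56 and 15.33 with LPS, 16.15 and 16.18 with IFNβ, and 15.63 and 15.53 with LPS+zVAD in WT cells. Ifnar1-/- Hexa read 16.90 and 16.97 without treatment, 15.99 and 16.11 with LPS, and 16.08 and 16.31 with LPS+zVAD. WT Hexa fell by 1.34 with LPS (SE 0.23, adjusted p = 0.000136) and fell by 0.61 with IFNβ (SE 0.23, adjusted p = 0.0436, up to 0.249 in leave-one-out). WT Hexa fell by 1.20 with LPS+zVAD (SE 0.23, adjusted p = 0.000219). Ifnar1-/- Hexa fell by 0.89 with LPS (SE 0.23, adjusted p = 0.00783, up to 0.0631 in leave-one-out) and fell by 0.74 with LPS+zVAD (SE 0.23, adjusted p = 0.0205, up to 0.156 in leave-one-out). Glb1, the lysosomal β-galactosidase, read 13.11 and 13.32 without treatment, 12.64 and 12.19 with LPS, and 12.70 and 12.33 with LPS+zVAD in WT cells. Ifnar1-/- Glb1 read 13.53 and 13.59 without treatment, 12.67 and 12.65 with LPS, and 12.78 and 12.84 with LPS+zVAD. WT Glb1 fell by 0.81 with LPS (SE 0.22, adjusted p = 0.00615, up to 0.0897 in leave-one-out) and fell by 0.70 with LPS+zVAD (SE 0.22, adjusted p = 0.0121, up to 0.129 in leave-one-out). Ifnar1-/- Glb1 fell by 0.90 with LPS (SE 0.22, adjusted p = 0.00547) and fell by 0.75 with LPS+zVAD (SE 0.22, adjusted p = 0.0153, up to 0.0892 in leave-one-out). Neu1, the lysosomal sialidase, fell with LPS in WT cells and rose when zVAD was added to LPS, in comparisons that share the LPS arrays. Its WT values were 15.09 and 15.14 without treatment, 13.77 and 14.24 with LPS, 14.45 and 14.68 with IFNβ, and 14.56 and 15.05 with LPS+zVAD, and it fell by 1.11 with LPS (SE 0.20, adjusted p = 0.000208) and fell by 0.55 with IFNβ (SE 0.20, adjusted p = 0.0403, up to 0.226 in leave-one-out). WT Neu1 rose by 0.80 when zVAD was added to LPS (SE 0.20, adjusted p = 0.00399, up to 0.0904 in leave-one-out). Its Ifnar1-/- values were 14.63 and 14.70 without treatment, 14.28 and 14.27 with LPS, and 15.19 and 15.17 with LPS+zVAD, and it rose by 0.90 when zVAD was added to LPS (SE 0.20, adjusted p = 0.00792, up to 0.0801 in leave-one-out). Gla, the α-galactosidase, was called in no comparison and stayed between 16.20 and 17.30 on the 32 arrays. With the 75th percentile shift the following hydrolase calls were lost: Gaa (WT IFNβ, LPS+zVAD), Gaa (Ifnar1-/- LPS), Glb1 (WT LPS, LPS+zVAD), Glb1 (Ifnar1-/- LPS, LPS+zVAD), Gusb (WT IFNβ), Gusb (Ifnar1-/- LPS, LPS+zVAD), Hexa (WT LPS, IFNβ, LPS+zVAD), Hexa (Ifnar1-/- LPS, LPS+zVAD), Lipa (Ifnar1-/- LPS+zVAD), Neu1 (WT LPS, IFNβ) and Neu1 (Ifnar1-/- zVAD on LPS). The median of the group with LPS in WT cells stayed below 0 under each scaling, at -0.78 with that shift.

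Among the cathepsins, Ctsc stood alone in size. It encodes the dipeptidyl peptidase that activates granzymes and neutrophil serine proteases. Ctsc read 14.43 and 14.30 without treatment, 16.76 and 17.13 with LPS, 16.59 and 16.61 with IFNβ, 14.69 and 13.94 with LPS+zVAD, and 16.25 and 16.57 with LPS+zVAD+Nec-1 in WT cells. Ifnar1-/- Ctsc read 12.82 and 12.77 without treatment, 15.01 and 15.67 with LPS, 12.83 and 12.72 with IFNβ, and 14.14 and 14.25 with LPS+zVAD. In WT cells Ctsc rose by 2.58 with LPS (SE 0.35, adjusted p = 1.19e-05) and rose by 2.23 with IFNβ (SE 0.35, adjusted p = 6.28e-05). WT Ctsc fell by 2.63 when zVAD was added to LPS (SE 0.35, adjusted p = 1.26e-05) and rose by 2.10 when Nec-1 was added to LPS+zVAD (SE 0.35, adjusted p = 0.000176). Its WT arrays with LPS+zVAD lay on either side of the untreated pair. Ifnar1-/- Ctsc rose by 2.54 with LPS (SE 0.35, adjusted p = 8.49e-05) and rose by 1.40 with LPS+zVAD (SE 0.35, adjusted p = 0.00536). Ifnar1-/- Ctsc fell by 1.14 when zVAD was added to LPS (SE 0.35, adjusted p = 0.0478, up to 0.379 in leave-one-out). The summed neutrophil markers, cells in which Ctsc is also known to act, read 14.18 to 15.28 in untreated and 14.78 to 15.56 in LPS-treated WT arrays, and 16.03 in untreated against 16.54 to 16.57 in LPS-treated Ifnar1-/- arrays, and their part in the rise of Ctsc was not tested. Ctsa, the carboxypeptidase that protects sialidase and β-galactosidase, read 15.28 and 14.76 without treatment, 14.47 and 14.15 with LPS, 15.65 and 16.28 with LPS+zVAD, and 14.85 and 14.82 with LPS+zVAD+Nec-1 in WT cells. WT Ctsa fell by 0.70 with LPS (SE 0.22, adjusted p = 0.0141, up to 0.196 in leave-one-out) and rose by 0.95 with LPS+zVAD (SE 0.22, adjusted p = 0.00121). WT Ctsa rose by 1.65 when zVAD was added to LPS (SE 0.22, adjusted p = 1.3e-05) and fell by 1.13 when Nec-1 was added to LPS+zVAD (SE 0.22, adjusted p = 0.000673), and another probe of Ctsa gave -0.21 for LPS+zVAD against untreated.

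Ctsd, the main aspartic protease of lysosomes, read in WT cells 18.04 and 18.01 without treatment, 18.21 and 18.12 with zVAD, 17.52 and 17.33 with LPS, 17.44 and 17.29 with LPS+zVAD, and 17.53 and 17.48 with LPS+zVAD+Nec-1. WT Ctsd read 17.62 and 17.72 with IFNβ, 17.65 and 17.45 with IFNβ+zVAD, and 17.69 and 17.67 with IFNβ+zVAD+Nec-1. Ifnar1-/- Ctsd read 18.55 and 18.70 without treatment, 18.41 and 18.58 with zVAD, 18.15 and 18.32 with LPS, 18.21 and 18.32 with LPS+zVAD, and 18.06 and 18.44 with LPS+zVAD+Nec-1. Ifnar1-/- Ctsd read 18.18 and 18.55 with IFNβ, 18.32 and 18.47 with IFNβ+zVAD, and 18.70 and 18.55 with IFNβ+zVAD+Nec-1. It fell by 0.60 with LPS (SE 0.16, adjusted p = 0.00511) and fell by 0.66 with LPS+zVAD (SE 0.16, adjusted p = 0.00176) in WT cells, and the latter value became 0.26 with the 75th percentile shift. Ctsh, an aminopeptidase, read 16.61 and 16.55 without treatment, 15.79 and 15.60 with LPS, and 15.69 and 15.67 with LPS+zVAD in Ifnar1-/- cells, and it fell by 0.88 with LPS (SE 0.24, adjusted p = 0.0109, up to 0.0863 in leave-one-out) and fell by 0.90 with LPS+zVAD (SE 0.24, adjusted p = 0.00875, up to 0.0533 in leave-one-out). Its WT values were 16.42 and 16.88 without treatment, 15.78 and 16.25 with LPS, and 15.66 and 15.87 with LPS+zVAD, and WT Ctsh fell by 0.63 with LPS (SE 0.24, adjusted p = 0.0417, up to 0.343 in leave-one-out) and fell by 0.88 with LPS+zVAD (SE 0.24, adjusted p = 0.00455, 0.0796 without WT untreated replicate 2). Ctsk, the collagen-degrading protease of osteoclasts, fell only in Ifnar1-/- cells among the comparisons tested, with 13.41 and 13.44 without treatment, and 12.22 and 12.15 with LPS. It fell by 1.24 with LPS (SE 0.33, adjusted p = 0.0101, up to 0.0615 in leave-one-out), while the WT change was -0.66 with LPS (adjusted p = 0.125), and the difference between the genotypes was -0.58 (adjusted p = 0.601). Ctsl, a broad endopeptidase, read in WT cells 17.91 and 17.75 without treatment, 17.83 and 17.82 with zVAD, 17.58 and 17.44 with LPS, 17.78 and 17.79 with LPS+zVAD, and 17.66 and 17.61 with LPS+zVAD+Nec-1. WT Ctsl read 17.46 and 17.63 with IFNβ, 17.53 and 17.70 with IFNβ+zVAD, and 17.33 and 17.59 with IFNβ+zVAD+Nec-1. Ifnar1-/- Ctsl read 18.25 and 18.15 without treatment, 18.24 and 18.17 with zVAD, 17.83 and 17.83 with LPS, 18.22 and 18.18 with LPS+zVAD, and 18.03 and 18.09 with LPS+zVAD+Nec-1. Ifnar1-/- Ctsl read 18.44 and 18.20 with IFNβ, 18.38 and 18.35 with IFNβ+zVAD, and 18.03 and 18.16 with IFNβ+zVAD+Nec-1, and it fell by 0.37 with LPS (SE 0.13, adjusted p = 0.0466, up to 0.22 in leave-one-out). Ctsz rose by 0.54 with LPS+zVAD (SE 0.14, adjusted p = 0.00346) in WT and rose by 0.48 with LPS+zVAD (SE 0.14, adjusted p = 0.0166, up to 0.0912 in leave-one-out) in Ifnar1-/- cells. Ctsb, the most studied cathepsin in inflammasome signalling, was called in no comparison, with WT readings of 18.10 and 17.81 without treatment, 18.24 and 18.19 with zVAD, 17.94 and 17.80 with LPS, 18.06 and 17.70 with LPS+zVAD, and 17.91 and 17.91 with LPS+zVAD+Nec-1. WT Ctsb read 17.97 and 17.85 with IFNβ, 17.99 and 17.75 with IFNβ+zVAD, and 18.01 and 17.71 with IFNβ+zVAD+Nec-1. Ifnar1-/- Ctsb read 18.24 and 17.97 without treatment, 18.15 and 17.45 with zVAD, 18.18 and 17.94 with LPS, 18.06 and 17.93 with LPS+zVAD, and 18.18 and 17.84 with LPS+zVAD+Nec-1. Ifnar1-/- Ctsb read 18.004 and 17.94 with IFNβ, 17.56 and 17.90 with IFNβ+zVAD, and 17.85 and 17.87 with IFNβ+zVAD+Nec-1. Ctss, which processes the invariant chain of MHC class II, was also called in none and stayed between 17.32 and 18.44. Calls lost with the 75th percentile shift were Ctsa (WT LPS), Ctsd (WT LPS, LPS+zVAD), Ctsh (WT LPS, LPS+zVAD), Ctsh (Ifnar1-/- LPS, LPS+zVAD) and Ctsl (Ifnar1-/- LPS).

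The membrane proteins differed from each other. Mcoln1, the calcium channel TRPML1 that is itself a known TFEB target, read in WT cells 13.90 and 13.88 without treatment, 14.06 and 13.73 with zVAD, 12.87 and 12.22 with LPS, 13.70 and 13.58 with LPS+zVAD, and 13.13 and 12.98 with LPS+zVAD+Nec-1. WT Mcoln1 read 13.43 and 13.13 with IFNβ, 13.60 and 13.40 with IFNβ+zVAD, and 13.50 and 13.42 with IFNβ+zVAD+Nec-1. Ifnar1-/- Mcoln1 read 13.78 and 13.92 without treatment, 14.07 and 13.87 with zVAD, 12.995 and 13.29 with LPS, 13.57 and 13.85 with LPS+zVAD, and 13.33 and 14.28 with LPS+zVAD+Nec-1. Ifnar1-/- Mcoln1 read 13.97 and 14.14 with IFNβ, 14.12 and 14.21 with IFNβ+zVAD, and 14.08 and 14.17 with IFNβ+zVAD+Nec-1. In WT cells it fell by 1.34 with LPS (SE 0.25, adjusted p = 0.000249) and rose by 1.096 when zVAD was added to LPS (SE 0.25, adjusted p = 0.0018, 0.0557 without WT LPS replicate 2), and in Ifnar1-/- cells it fell by 0.71 with LPS (SE 0.25, adjusted p = 0.0421, up to 0.255 in leave-one-out). The untreated and LPS+zVAD arrays lay above both LPS arrays in each genotype. Lamp2, a glycoprotein of the lysosomal membrane and a receptor of chaperone-mediated autophagy, was higher with LPS in WT and lower in Ifnar1-/- cells. WT Lamp2 read 14.89 and 14.91 without treatment, 14.71 and 15.05 with zVAD, 15.17 and 15.55 with LPS, 15.05 and 15.25 with LPS+zVAD, and 15.30 and 15.64 with LPS+zVAD+Nec-1. WT Lamp2 read 15.59 and 16.01 with IFNβ, 15.44 and 15.61 with IFNβ+zVAD, and 15.31 and 15.18 with IFNβ+zVAD+Nec-1. Ifnar1-/- Lamp2 read 15.04 and 14.98 without treatment, 14.95 and 14.97 with zVAD, 14.36 and 14.63 with LPS, 14.61 and 14.68 with LPS+zVAD, and 14.61 and 14.81 with LPS+zVAD+Nec-1. Ifnar1-/- Lamp2 read 15.05 and 14.89 with IFNβ, 15.01 and 14.87 with IFNβ+zVAD, and 14.76 and 14.74 with IFNβ+zVAD+Nec-1. It rose by 0.47 with LPS (SE 0.18, adjusted p = 0.0456, up to 0.335 in leave-one-out) and rose by 0.90 with IFNβ (SE 0.18, adjusted p = 0.000707) in WT cells, and it fell by 0.52 with LPS (SE 0.18, adjusted p = 0.0435, up to 0.289 in leave-one-out) in Ifnar1-/- cells. Lamp1, the other abundant membrane glycoprotein, read in WT cells 18.20 and 18.14 without treatment, 18.07 and 18.06 with zVAD, 17.57 and 17.61 with LPS, 17.60 and 17.78 with LPS+zVAD, and 17.62 and 17.71 with LPS+zVAD+Nec-1. WT Lamp1 read 17.64 and 17.75 with IFNβ, 17.68 and 17.72 with IFNβ+zVAD, and 17.75 and 17.66 with IFNβ+zVAD+Nec-1. Ifnar1-/- Lamp1 read 17.72 and 17.83 without treatment, 17.78 and 17.93 with zVAD, 17.54 and 17.58 with LPS, 17.86 and 17.82 with LPS+zVAD, and 17.52 and 17.75 with LPS+zVAD+Nec-1. Ifnar1-/- Lamp1 read 17.70 and 17.89 with IFNβ, 17.75 and 17.68 with IFNβ+zVAD, and 17.69 and 17.91 with IFNβ+zVAD+Nec-1. WT Lamp1 fell by 0.58 with LPS (SE 0.13, adjusted p = 0.00159) and fell by 0.47 with IFNβ (SE 0.13, adjusted p = 0.00828, up to 0.0688 in leave-one-out). WT Lamp1 fell by 0.48 with LPS+zVAD (SE 0.13, adjusted p = 0.00469), but with the 75th percentile shift it was called in none of these and changed sign with IFNβ (0.21) and LPS+zVAD (0.45), so these data give Lamp1 no settled direction with IFNβ or LPS+zVAD. With LPS its change under the 75th percentile shift was -0.03 and was not called, so that fall is not settled either. The same shift ended the Ifnar1-/- calls of Lamp2 and Mcoln1 with LPS.

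The 2 precursor genes fell with LPS in Ifnar1-/- cells. Psap encodes the precursor of the saposins, which help hydrolases act on sphingolipids, and Grn encodes progranulin, a secreted and lysosomal protein. Psap fell by 1.0999 with LPS (SE 0.18, adjusted p = 9.92e-05) and fell by 0.84 with LPS+zVAD (SE 0.18, adjusted p = 0.000785) in WT cells and fell by 0.64 with LPS (SE 0.18, adjusted p = 0.0141, up to 0.0739 in leave-one-out) in Ifnar1-/- cells. Grn read 17.08 and 17.09 without treatment, 16.90 and 16.77 with LPS, 16.45 and 16.12 with LPS+zVAD, and 17.02 and 16.88 with LPS+zVAD+Nec-1 in WT cells. Ifnar1-/- Grn read 17.61 and 17.38 without treatment, 16.68 and 16.40 with LPS, and 16.68 and 16.52 with LPS+zVAD. WT Grn fell by 0.80 with LPS+zVAD (SE 0.19, adjusted p = 0.00159) and fell by 0.55 when zVAD was added to LPS (SE 0.19, adjusted p = 0.0298, up to 0.249 in leave-one-out). WT Grn rose by 0.67 when Nec-1 was added to LPS+zVAD (SE 0.19, adjusted p = 0.0124, up to 0.152 in leave-one-out). Ifnar1-/- Grn fell by 0.96 with LPS (SE 0.19, adjusted p = 0.0012) and fell by 0.90 with LPS+zVAD (SE 0.19, adjusted p = 0.00179). The 75th percentile shift ended all calls of Psap and Grn.

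When zVAD was added to LPS, 7 of the 11 V-ATPase V1 genes rose in WT and 5 in Ifnar1-/- cells. Atp6v1h, the regulatory H subunit, read 11.43 and 11.43 without treatment, 12.22 and 12.15 with LPS, 13.73 and 14.17 with LPS+zVAD, and 12.32 and 12.54 with LPS+zVAD+Nec-1 in WT cells. WT Atp6v1h rose by 0.76 with LPS (SE 0.20, adjusted p = 0.00539) and rose by 2.52 with LPS+zVAD (SE 0.20, adjusted p = 1.57e-08). WT Atp6v1h rose by 1.77 when zVAD was added to LPS (SE 0.20, adjusted p = 3.13e-06) and fell by 1.53 when Nec-1 was added to LPS+zVAD (SE 0.20, adjusted p = 2.51e-05). Its level with LPS+zVAD was 5.75-fold higher than without treatment. Ifnar1-/- Atp6v1h read 12.23 and 12.45 without treatment, 13.02 and 13.18 with LPS, and 13.72 and 13.93 with LPS+zVAD, and it rose by 0.77 with LPS (SE 0.20, adjusted p = 0.00894, up to 0.0892 in leave-one-out) and rose by 1.49 with LPS+zVAD (SE 0.20, adjusted p = 5.5e-05). Ifnar1-/- Atp6v1h rose by 0.72 when zVAD was added to LPS (SE 0.20, adjusted p = 0.0337, up to 0.217 in leave-one-out). The catalytic A subunit gene Atp6v1a read 15.66 and 15.55 without treatment, 14.66 and 14.53 with LPS, 15.85 and 16.54 with LPS+zVAD, and 14.57 and 15.08 with LPS+zVAD+Nec-1 in WT cells. Ifnar1-/- Atp6v1a read 16.04 and 16.15 without treatment, 15.37 and 15.29 with LPS, and 16.29 and 16.19 with LPS+zVAD. WT Atp6v1a fell by 1.01 with LPS (SE 0.21, adjusted p = 0.000868) and rose by 0.59 with LPS+zVAD (SE 0.21, adjusted p = 0.0261, up to 0.401 in leave-one-out). WT Atp6v1a rose by 1.603 when zVAD was added to LPS (SE 0.21, adjusted p = 1.44e-05) and fell by 1.37 when Nec-1 was added to LPS+zVAD (SE 0.21, adjusted p = 0.0001). Ifnar1-/- Atp6v1a fell by 0.76 with LPS (SE 0.21, adjusted p = 0.0126, up to 0.085 in leave-one-out) and rose by 0.91 when zVAD was added to LPS (SE 0.21, adjusted p = 0.0115, up to 0.121 in leave-one-out). The B subunit isoform found in most tissues, Atp6v1b2, read 11.77 and 11.87 without treatment, 12.16 and 11.87 with LPS, 12.74 and 12.34 with IFNβ, 13.03 and 13.91 with LPS+zVAD, and 12.18 and 12.44 with LPS+zVAD+Nec-1 in WT cells. It rose by 0.72 with IFNβ (SE 0.24, adjusted p = 0.0246, up to 0.212 in leave-one-out) and rose by 1.65 with LPS+zVAD (SE 0.24, adjusted p = 1.22e-05). WT Atp6v1b2 rose by 1.46 when zVAD was added to LPS (SE 0.24, adjusted p = 0.000117) and fell by 1.16 when Nec-1 was added to LPS+zVAD (SE 0.24, adjusted p = 0.00115). The Ifnar1-/- changes of Atp6v1b2 were -0.10 with LPS (adjusted p = 0.838), 0.30 with LPS+zVAD (adjusted p = 0.391) and 0.41 when zVAD was added to LPS (adjusted p = 0.358), and its interaction for LPS+zVAD is given above.

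Atp6v1c1, a stalk subunit that joins V1 to V0, read 13.68 and 13.77 without treatment, 12.79 and 12.85 with LPS, 14.51 and 15.18 with LPS+zVAD, and 12.99 and 13.68 with LPS+zVAD+Nec-1 in WT cells. Ifnar1-/- Atp6v1c1 read 14.40 and 14.59 without treatment, 13.43 and 13.49 with LPS, and 14.78 and 14.88 with LPS+zVAD. WT Atp6v1c1 fell by 0.90 with LPS (SE 0.29, adjusted p = 0.0187, up to 0.0918 in leave-one-out) and rose by 1.12 with LPS+zVAD (SE 0.29, adjusted p = 0.00326, 0.0707 without WT LPS+zVAD replicate 2). WT Atp6v1c1 rose by 2.02 when zVAD was added to LPS (SE 0.29, adjusted p = 3.27e-05) and fell by 1.51 when Nec-1 was added to LPS+zVAD (SE 0.29, adjusted p = 0.000664). Ifnar1-/- Atp6v1c1 fell by 1.03 with LPS (SE 0.29, adjusted p = 0.0136, up to 0.0956 in leave-one-out) and rose by 1.37 when zVAD was added to LPS (SE 0.29, adjusted p = 0.00604, up to 0.0604 in leave-one-out). The arrays with LPS lay below, and those with LPS+zVAD above, the untreated arrays in WT cells. Atp6v1d, a subunit of the central rotor, was the V1 gene that responded most to IFNβ. Its WT values were 14.93 and 14.97 without treatment, 14.87 and 14.70 with LPS, 16.80 and 16.50 with IFNβ, 15.97 and 16.36 with LPS+zVAD, and 15.14 and 15.59 with LPS+zVAD+Nec-1, and it rose by 1.70 with IFNβ (SE 0.17, adjusted p = 3.59e-07) and rose by 1.22 with LPS+zVAD (SE 0.17, adjusted p = 7.23e-06). WT Atp6v1d rose by 1.38 when zVAD was added to LPS (SE 0.17, adjusted p = 5.52e-06) and fell by 0.80 when Nec-1 was added to LPS+zVAD (SE 0.17, adjusted p = 0.00139). Its Ifnar1-/- values were 15.12 and 15.15 without treatment, 14.35 and 14.42 with LPS, and 15.69 and 15.78 with LPS+zVAD, and it fell by 0.75 with LPS (SE 0.17, adjusted p = 0.00303) and rose by 0.60 with LPS+zVAD (SE 0.17, adjusted p = 0.0124, up to 0.0785 in leave-one-out). Ifnar1-/- Atp6v1d rose by 1.35 when zVAD was added to LPS (SE 0.17, adjusted p = 6.64e-05). Atp6v1e1, a peripheral stalk subunit, was higher with LPS in both genotypes, at 14.49 and 14.52 without treatment, 15.62 and 15.46 with LPS, and 15.96 and 16.22 with LPS+zVAD in WT cells. Ifnar1-/- Atp6v1e1 read 15.47 and 15.43 without treatment, 16.31 and 16.43 with LPS, and 16.62 and 16.67 with LPS+zVAD. WT Atp6v1e1 rose by 1.04 with LPS (SE 0.20, adjusted p = 0.000314) and rose by 1.59 with LPS+zVAD (SE 0.20, adjusted p = 1.86e-06). WT Atp6v1e1 rose by 0.55 when zVAD was added to LPS (SE 0.20, adjusted p = 0.0353, up to 0.233 in leave-one-out). Ifnar1-/- Atp6v1e1 rose by 0.92 with LPS (SE 0.20, adjusted p = 0.00202) and rose by 1.19 with LPS+zVAD (SE 0.20, adjusted p = 0.000238). Atp6v1g1 read 15.59 and 15.54 without treatment, 15.31 and 15.39 with LPS, and 15.95 and 16.01 with LPS+zVAD in Ifnar1-/- cells, where it rose by 0.63 when zVAD was added to LPS (SE 0.18, adjusted p = 0.0353, up to 0.199 in leave-one-out). WT Atp6v1f fell by 0.42 with LPS (SE 0.15, adjusted p = 0.0273, up to 0.105 in leave-one-out) and fell by 0.39 with IFNβ (SE 0.15, adjusted p = 0.0414, up to 0.165 in leave-one-out). WT Atp6v1f rose by 0.61 when zVAD was added to LPS (SE 0.15, adjusted p = 0.00277, 0.0673 without WT LPS+zVAD replicate 2), and the changes with LPS and with IFNβ turned to 0.08 each with the 75th percentile shift. The isoform genes Atp6v1e2, Atp6v1g2 and Atp6v1g3, which are known mainly from testis, brain and kidney, were called in no comparison. Calls lost with the 75th percentile shift were Atp6v1a (WT LPS), Atp6v1a (Ifnar1-/- LPS, zVAD on LPS), Atp6v1c1 (WT LPS), Atp6v1c1 (Ifnar1-/- LPS, zVAD on LPS), Atp6v1d (Ifnar1-/- LPS), Atp6v1f (WT LPS, IFNβ), Atp6v1g1 (Ifnar1-/- zVAD on LPS) and Atp6v1h (Ifnar1-/- zVAD on LPS). The rise of the V1 median when zVAD was added to LPS in WT cells was 0.61, and it was 1.005 with that shift.

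**Figure D5:**
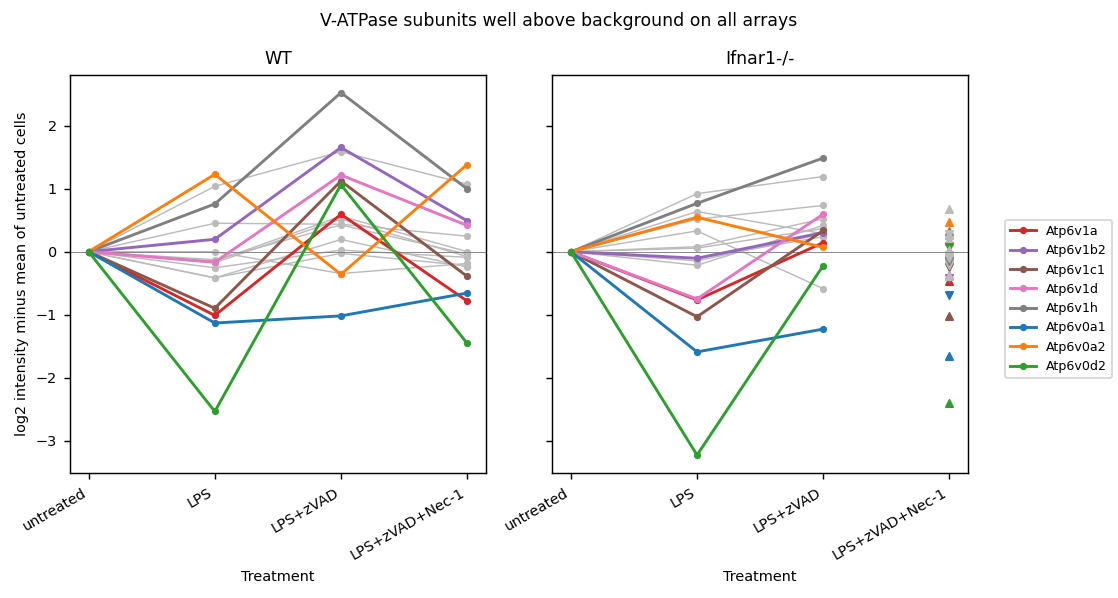
Mean log2 intensity minus that of untreated cells for the V-ATPase subunits that were well above background on all arrays, with LPS, LPS+zVAD and LPS+zVAD+Nec-1 in WT (left) and Ifnar1-/- cells (right). Coloured lines are the named subunits and grey lines the others; the last Ifnar1-/- group is drawn as its 2 arrays (upward triangle replicate 1, downward triangle replicate 2), since these disagree. Atp6v0d2 falls by 2.53 with LPS in WT cells and by 3.23 in Ifnar1-/- cells and lies near or above the untreated level with LPS+zVAD, and Atp6v0a2 in WT cells is higher than untreated with LPS and lower with LPS+zVAD than with LPS.

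Within V0, the largest movement was in Atp6v0d2, a d subunit isoform known from osteoclasts and macrophages. It read 13.50 and 13.85 without treatment, 11.48 and 10.81 with LPS, 12.89 and 12.35 with IFNβ, 14.27 and 15.21 with LPS+zVAD, and 11.80 and 12.65 with LPS+zVAD+Nec-1 in WT cells. Ifnar1-/- Atp6v0d2 read 15.69 and 15.57 without treatment, 12.43 and 12.38 with LPS, and 15.52 and 15.31 with LPS+zVAD. In WT cells Atp6v0d2 fell by 2.53 with LPS (SE 0.50, adjusted p = 0.000486) and rose by 3.60 when zVAD was added to LPS (SE 0.50, adjusted p = 2.24e-05). WT Atp6v0d2 fell by 2.52 when Nec-1 was added to LPS+zVAD (SE 0.50, adjusted p = 0.000859). Ifnar1-/- Atp6v0d2 fell by 3.23 with LPS (SE 0.50, adjusted p = 0.00019) and rose by 3.01 when zVAD was added to LPS (SE 0.50, adjusted p = 0.000908). The ubiquitous isoform Atp6v0d1 read 14.20 and 13.84 without treatment, 13.85 and 13.84 with LPS, 14.31 and 14.77 with LPS+zVAD, and 13.85 and 14.04 with LPS+zVAD+Nec-1 in WT cells, and it rose by 0.52 with LPS+zVAD (SE 0.17, adjusted p = 0.0146, up to 0.23 in leave-one-out) and rose by 0.70 when zVAD was added to LPS (SE 0.17, adjusted p = 0.00325, 0.0844 without WT LPS+zVAD replicate 2). WT Atp6v0d1 fell by 0.60 when Nec-1 was added to LPS+zVAD (SE 0.17, adjusted p = 0.0117, up to 0.215 in leave-one-out). Ifnar1-/- Atp6v0d1 rose by 0.52 with LPS+zVAD (SE 0.17, adjusted p = 0.0264, up to 0.114 in leave-one-out). The a subunits set where the pump is placed in the cell. Atp6v0a2 read 10.19 and 10.10 without treatment, 11.26 and 11.48 with LPS, 12.02 and 12.06 with IFNβ, 10.05 and 9.52 with LPS+zVAD, and 11.52 and 11.53 with LPS+zVAD+Nec-1 in WT cells, and it rose by 1.23 with LPS (SE 0.27, adjusted p = 0.00111) and rose by 1.89 with IFNβ (SE 0.27, adjusted p = 2.21e-05). WT Atp6v0a2 fell by 1.59 when zVAD was added to LPS (SE 0.27, adjusted p = 0.000145) and rose by 1.74 when Nec-1 was added to LPS+zVAD (SE 0.27, adjusted p = 8.98e-05). Its Ifnar1-/- changes were 0.55 with LPS (adjusted p = 0.156), 0.07 with LPS+zVAD (adjusted p = 0.898) and -0.48 when zVAD was added to LPS (adjusted p = 0.327). Atp6v0a1 read 14.89 and 14.66 without treatment, 13.85 and 13.43 with LPS, and 14.16 and 13.35 with LPS+zVAD in WT cells. Ifnar1-/- Atp6v0a1 read 15.93 and 15.87 without treatment, 14.26 and 14.36 with LPS, and 14.64 and 14.70 with LPS+zVAD. Ifnar1-/- Atp6v0a1 fell by 1.59 with LPS (SE 0.28, adjusted p = 0.000496) and fell by 1.23 with LPS+zVAD (SE 0.28, adjusted p = 0.00302). WT Atp6v0a1 fell by 1.13 with LPS (SE 0.28, adjusted p = 0.00312) and fell by 1.02 with LPS+zVAD (SE 0.28, adjusted p = 0.00496, 0.122 without WT LPS+zVAD replicate 2), but another probe of the gene gave 0.33 and 0.43, and both WT calls were lost with the 75th percentile shift and with the mean of all retained probes.

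The proteolipid ring gene Atp6v0b read 14.91 and 14.89 without treatment, 14.30 and 14.49 with IFNβ, 14.76 and 14.73 with LPS, 15.24 and 15.68 with LPS+zVAD, and 14.94 and 14.86 with LPS+zVAD+Nec-1 in WT cells. Ifnar1-/- Atp6v0b read 15.52 and 15.93 without treatment, 16.21 and 16.28 with LPS, and 16.37 and 16.56 with LPS+zVAD. WT Atp6v0b fell by 0.50 with IFNβ (SE 0.17, adjusted p = 0.0317, up to 0.19 in leave-one-out) and rose by 0.56 with LPS+zVAD (SE 0.17, adjusted p = 0.0111, up to 0.174 in leave-one-out). WT Atp6v0b rose by 0.72 when zVAD was added to LPS (SE 0.17, adjusted p = 0.00345, 0.082 without WT LPS+zVAD replicate 2) and fell by 0.56 when Nec-1 was added to LPS+zVAD (SE 0.17, adjusted p = 0.0207, up to 0.28 in leave-one-out). Ifnar1-/- Atp6v0b rose by 0.52 with LPS (SE 0.17, adjusted p = 0.0371, up to 0.363 in leave-one-out) and rose by 0.73 with LPS+zVAD (SE 0.17, adjusted p = 0.00414, 0.0812 without Ifnar1-/- untreated replicate 1). The other ring gene, Atp6v0c, fell by 0.41 with LPS (SE 0.15, adjusted p = 0.0309, up to 0.179 in leave-one-out) and rose by 0.39 when zVAD was added to LPS (SE 0.15, adjusted p = 0.0494, up to 0.292 in leave-one-out) in WT cells, and WT Atp6v0e rose by 0.43 with LPS+zVAD (SE 0.16, adjusted p = 0.0299, up to 0.44 in leave-one-out) and rose by 0.55 when zVAD was added to LPS (SE 0.16, adjusted p = 0.00984, up to 0.225 in leave-one-out). WT Atp6v0e fell by 0.46 when Nec-1 was added to LPS+zVAD (SE 0.16, adjusted p = 0.033, up to 0.468 in leave-one-out). With the 75th percentile shift the falls of Atp6v0b with IFNβ and of Atp6v0c with LPS turned to 0.03 and 0.08. Atp6v0e2 was not well above background in WT cells with LPS or LPS+zVAD, while its untreated arrays were. Its changes against untreated cells were -1.65 with LPS (adjusted p = 0.095) and -1.35 with LPS+zVAD (adjusted p = 0.154), and neither was called. Their size is uncertain, since the treated arrays were not above background.

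Of the autophagy initiation genes with LPS in WT cells, the lowest change was that of Ulk1, the kinase that starts autophagosome formation. WT Ulk1 read 14.30 and 14.37 without treatment, 14.18 and 13.78 with zVAD, 11.40 and 11.99 with LPS, 13.24 and 13.57 with LPS+zVAD, and 11.99 and 12.19 with LPS+zVAD+Nec-1. WT Ulk1 read 11.59 and 12.36 with IFNβ, 11.92 and 12.44 with IFNβ+zVAD, and 12.36 and 12.76 with IFNβ+zVAD+Nec-1. Ifnar1-/- Ulk1 read 13.59 and 13.76 without treatment, 13.59 and 13.72 with zVAD, 12.23 and 12.19 with LPS, 13.78 and 13.65 with LPS+zVAD, and 12.83 and 14.32 with LPS+zVAD+Nec-1. Ifnar1-/- Ulk1 read 13.43 and 13.46 with IFNβ, 13.53 and 13.71 with IFNβ+zVAD, and 13.75 and 14.09 with IFNβ+zVAD+Nec-1. In WT cells it fell by 2.64 with LPS (SE 0.35, adjusted p = 9.59e-06) and fell by 2.36 with IFNβ (SE 0.35, adjusted p = 3.45e-05). WT Ulk1 fell by 0.93 with LPS+zVAD (SE 0.35, adjusted p = 0.0316, up to 0.162 in leave-one-out) and rose by 1.71 when zVAD was added to LPS (SE 0.35, adjusted p = 0.000762). WT Ulk1 fell by 1.31 when Nec-1 was added to LPS+zVAD (SE 0.35, adjusted p = 0.00758, up to 0.0816 in leave-one-out), and its level with LPS was 6.25-fold lower than without treatment. Ifnar1-/- Ulk1 fell by 1.46 with LPS (SE 0.35, adjusted p = 0.00454) and rose by 1.503 when zVAD was added to LPS (SE 0.35, adjusted p = 0.0103, up to 0.109 in leave-one-out). Becn1, the scaffold of the lipid kinase complex, was called in no comparison. WT Becn1 read 10.87 and 11.03 without treatment, 11.03 and 11.30 with zVAD, 11.24 and 11.33 with LPS, 11.12 and 11.29 with LPS+zVAD, and 11.498 and 11.39 with LPS+zVAD+Nec-1. WT Becn1 read 11.21 and 11.43 with IFNβ, 11.34 and 11.40 with IFNβ+zVAD, and 11.27 and 11.41 with IFNβ+zVAD+Nec-1. Ifnar1-/- Becn1 read 10.99 and 11.26 without treatment, 11.31 and 11.34 with zVAD, 11.47 and 11.53 with LPS, 11.17 and 11.43 with LPS+zVAD, and 11.08 and 11.28 with LPS+zVAD+Nec-1. Ifnar1-/- Becn1 read 11.12 and 11.40 with IFNβ, 11.16 and 11.36 with IFNβ+zVAD, and 10.95 and 11.29 with IFNβ+zVAD+Nec-1. Atg13, an adaptor of the ULK1 complex, read 13.65 and 13.91 without treatment, 12.34 and 12.67 with LPS, and 13.04 and 14.33 with LPS+zVAD in WT cells, and it fell by 1.28 with LPS (SE 0.35, adjusted p = 0.00669, up to 0.0655 in leave-one-out) and rose by 1.18 when zVAD was added to LPS (SE 0.35, adjusted p = 0.013, up to 0.318 in leave-one-out). Atg14, which targets the lipid kinase to the membrane of origin, read 10.88 and 11.15 without treatment, 9.17 and 10.23 with LPS, 10.95 and 11.54 with LPS+zVAD, and 9.42 and 10.49 with LPS+zVAD+Nec-1, and it fell by 1.32 with LPS (SE 0.44, adjusted p = 0.0231, up to 0.288 in leave-one-out) and rose by 1.55 when zVAD was added to LPS (SE 0.44, adjusted p = 0.0103, up to 0.145 in leave-one-out). WT Atg14 fell by 1.29 when Nec-1 was added to LPS+zVAD (SE 0.44, adjusted p = 0.0353, up to 0.335 in leave-one-out).

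Wipi1, which binds the lipid product of that kinase, read 10.999 and 10.87 without treatment, 8.99 and 9.71 with LPS, 8.66 and 9.14 with IFNβ, and 9.27 and 9.12 with LPS+zVAD in WT cells. Ifnar1-/- Wipi1 read 10.91 and 11.49 without treatment, 10.79 and 10.84 with LPS, and 10.35 and 10.65 with LPS+zVAD. WT Wipi1 fell by 1.58 with LPS (SE 0.26, adjusted p = 7.96e-05) and fell by 2.04 with IFNβ (SE 0.26, adjusted p = 6.35e-06). WT Wipi1 fell by 1.74 with LPS+zVAD (SE 0.26, adjusted p = 1.48e-05). Ifnar1-/- Wipi1 fell by 0.70 with LPS+zVAD (SE 0.26, adjusted p = 0.0481, up to 0.405 in leave-one-out). The lipid transfer genes Atg2a and Atg2b both fell with LPS and with IFNβ in WT cells and had opposite signs with LPS+zVAD. Atg2a read 10.65 and 10.69 without treatment, 9.10 and 9.22 with LPS, 8.95 and 9.47 with IFNβ, 11.19 and 11.46 with LPS+zVAD, and 9.45 and 9.68 with LPS+zVAD+Nec-1 in WT cells. Ifnar1-/- Atg2a read 10.89 and 10.72 without treatment, 9.89 and 10.12 with LPS, and 11.63 and 11.76 with LPS+zVAD. WT Atg2a fell by 1.51 with LPS (SE 0.26, adjusted p = 0.000122) and fell by 1.46 with IFNβ (SE 0.26, adjusted p = 0.000214). WT Atg2a rose by 0.65 with LPS+zVAD (SE 0.26, adjusted p = 0.0404, up to 0.206 in leave-one-out) and rose by 2.16 when zVAD was added to LPS (SE 0.26, adjusted p = 4.3e-06). WT Atg2a fell by 1.76 when Nec-1 was added to LPS+zVAD (SE 0.26, adjusted p = 5.66e-05). Ifnar1-/- Atg2a fell by 0.80 with LPS (SE 0.26, adjusted p = 0.0271, up to 0.171 in leave-one-out) and rose by 0.89 with LPS+zVAD (SE 0.26, adjusted p = 0.0143, up to 0.0989 in leave-one-out). Ifnar1-/- Atg2a rose by 1.69 when zVAD was added to LPS (SE 0.26, adjusted p = 0.000392). Atg2b was dim, with 6.996 and 7.77 without treatment, 4.02 and 5.58 with LPS, 3.98 and 5.26 with IFNβ, and 4.44 and 3.69 with LPS+zVAD in WT cells, and it fell by 2.59 with LPS (SE 0.55, adjusted p = 0.000896) and fell by 2.76 with IFNβ (SE 0.55, adjusted p = 0.00065). WT Atg2b fell by 3.32 with LPS+zVAD (SE 0.55, adjusted p = 5.02e-05). Only 1 of the 2 arrays was well above background with IFNβ and with LPS+zVAD, and with normexp background these falls were smaller, at -1.19 (LPS), -1.26 (IFNβ) and -1.38 (LPS+zVAD). The scramblase gene Atg9a, which supplies membrane, read 9.31 and 9.58 without treatment, 9.93 and 10.35 with LPS, 7.39 and 8.43 with IFNβ, 7.35 and 6.22 with LPS+zVAD, and 9.37 and 9.32 with LPS+zVAD+Nec-1 in WT cells. Ifnar1-/- Atg9a read 8.26 and 8.68 without treatment, 9.18 and 8.75 with LPS, and 8.30 and 8.84 with LPS+zVAD. WT Atg9a fell by 1.53 with IFNβ (SE 0.37, adjusted p = 0.00313, 0.0812 without WT IFNβ replicate 1) and fell by 2.66 with LPS+zVAD (SE 0.37, adjusted p = 7.43e-06). WT Atg9a fell by 3.36 when zVAD was added to LPS (SE 0.37, adjusted p = 2.06e-06) and rose by 2.56 when Nec-1 was added to LPS+zVAD (SE 0.37, adjusted p = 5.08e-05). The Ifnar1-/- changes of Atg9a were 0.49 with LPS (adjusted p = 0.393), 0.10 with LPS+zVAD (adjusted p = 0.892) and -0.39 when zVAD was added to LPS (adjusted p = 0.641), and its LPS+zVAD arrays overlapped with the untreated and with the LPS arrays. Calls lost with the 75th percentile shift were Atg13 (WT LPS), Atg14 (WT LPS, Nec-1), Atg2a (WT LPS+zVAD), Atg2a (Ifnar1-/- LPS), Ulk1 (WT LPS+zVAD), Ulk1 (Ifnar1-/- LPS) and Wipi1 (Ifnar1-/- LPS+zVAD).

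Among the conjugation genes, Atg16l1 rose with LPS in WT cells, where 6 of the 11 fell. Its product recruits the ATG12-ATG5 conjugate to the membrane where LC3 is lipidated. WT Atg16l1 read 11.70 and 12.33 without treatment, 14.86 and 14.93 with LPS, 14.75 and 14.34 with IFNβ, and 14.14 and 14.70 with LPS+zVAD. Ifnar1-/- Atg16l1 read 10.44 and 10.57 without treatment, 11.14 and 11.20 with LPS, 11.05 and 10.67 with IFNβ, and 11.02 and 10.99 with LPS+zVAD. With Nec-1 the Ifnar1-/- arrays were higher, at 11.43 and 12.73 with LPS+zVAD+Nec-1, and 13.80 and 13.18 with IFNβ+zVAD+Nec-1, against 11.10 and 10.89 with IFNβ+zVAD, and these groups were not tested. WT Atg16l1 rose by 2.88 with LPS (SE 0.35, adjusted p = 3.75e-06) and rose by 2.53 with IFNβ (SE 0.35, adjusted p = 1.55e-05). WT Atg16l1 rose by 2.40 with LPS+zVAD (SE 0.35, adjusted p = 1.11e-05), while the Ifnar1-/- changes were 0.66 with LPS (adjusted p = 0.187), 0.36 with IFNβ (adjusted p = 1) and 0.50 with LPS+zVAD (adjusted p = 0.315). The related gene Atg16l2 went the other way, with 11.31 and 11.62 without treatment, 9.4002 and 9.98 with LPS, 8.97 and 10.18 with IFNβ, and 9.76 and 11.01 with LPS+zVAD, and it fell by 1.78 with LPS (SE 0.50, adjusted p = 0.00778, up to 0.0803 in leave-one-out) and fell by 1.89 with IFNβ (SE 0.50, adjusted p = 0.00634, up to 0.119 in leave-one-out). Map1lc3b, which encodes the LC3 protein that marks autophagosomes, read in WT cells 15.22 and 15.16 without treatment, 15.09 and 14.96 with zVAD, 13.13 and 13.13 with LPS, 14.34 and 14.48 with LPS+zVAD, and 13.54 and 13.48 with LPS+zVAD+Nec-1. WT Map1lc3b read 14.52 and 13.96 with IFNβ, 14.65 and 13.97 with IFNβ+zVAD, and 14.73 and 14.21 with IFNβ+zVAD+Nec-1. Ifnar1-/- Map1lc3b read 15.30 and 15.34 without treatment, 15.27 and 15.34 with zVAD, 13.84 and 13.88 with LPS, 14.51 and 14.55 with LPS+zVAD, and 14.44 and 15.46 with LPS+zVAD+Nec-1. Ifnar1-/- Map1lc3b read 15.12 and 15.27 with IFNβ, 15.18 and 15.28 with IFNβ+zVAD, and 15.48 and 15.44 with IFNβ+zVAD+Nec-1. WT Map1lc3b fell by 2.06 with LPS (SE 0.26, adjusted p = 7.59e-06) and fell by 0.95 with IFNβ (SE 0.26, adjusted p = 0.00868, up to 0.123 in leave-one-out). WT Map1lc3b fell by 0.78 with LPS+zVAD (SE 0.26, adjusted p = 0.0191, up to 0.0909 in leave-one-out) and rose by 1.28 when zVAD was added to LPS (SE 0.26, adjusted p = 0.000882). WT Map1lc3b fell by 0.90 when Nec-1 was added to LPS+zVAD (SE 0.26, adjusted p = 0.0147, up to 0.102 in leave-one-out). Ifnar1-/- Map1lc3b fell by 1.46 with LPS (SE 0.26, adjusted p = 0.000606) and fell by 0.79 with LPS+zVAD (SE 0.26, adjusted p = 0.0306, up to 0.134 in leave-one-out).

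Atg7, the E1-like enzyme of both conjugation reactions, read 12.82 and 12.72 without treatment, 10.90 and 11.33 with LPS, 11.45 and 11.83 with IFNβ, and 11.90 and 11.43 with LPS+zVAD in WT cells. Ifnar1-/- Atg7 read 12.77 and 12.70 without treatment, 11.79 and 11.58 with LPS, and 11.98 and 11.93 with LPS+zVAD. WT Atg7 fell by 1.65 with LPS (SE 0.18, adjusted p = 1.68e-06) and fell by 1.13 with IFNβ (SE 0.18, adjusted p = 0.000107). WT Atg7 fell by 1.105 with LPS+zVAD (SE 0.18, adjusted p = 5.52e-05). Ifnar1-/- Atg7 fell by 1.06 with LPS (SE 0.18, adjusted p = 0.000459) and fell by 0.78 with LPS+zVAD (SE 0.18, adjusted p = 0.00374). The E2-like Atg10 read 10.13 and 10.52 without treatment, 9.0004 and 9.55 with LPS, and 8.96 and 9.26 with LPS+zVAD in WT cells. Ifnar1-/- Atg10 read 10.33 and 10.64 without treatment, 9.41 and 9.74 with LPS, and 8.86 and 9.398 with LPS+zVAD. WT Atg10 fell by 1.05 with LPS (SE 0.31, adjusted p = 0.0103, up to 0.131 in leave-one-out) and fell by 1.21 with LPS+zVAD (SE 0.31, adjusted p = 0.00287). Ifnar1-/- Atg10 fell by 0.91 with LPS (SE 0.31, adjusted p = 0.0374, up to 0.227 in leave-one-out) and fell by 1.36 with LPS+zVAD (SE 0.31, adjusted p = 0.00294, 0.0574 without Ifnar1-/- LPS+zVAD replicate 1). WT Atg3, the other E2-like gene, rose by 0.59 with LPS (SE 0.20, adjusted p = 0.0213, up to 0.173 in leave-one-out) and rose by 0.60 with IFNβ (SE 0.20, adjusted p = 0.0218, up to 0.0907 in leave-one-out). WT Atg3 rose by 0.65 with LPS+zVAD (SE 0.20, adjusted p = 0.00904, 0.166 without WT LPS+zVAD replicate 2). Ifnar1-/- Atg3 rose by 0.59 with LPS+zVAD (SE 0.20, adjusted p = 0.0289, up to 0.336 in leave-one-out). Atg5 read 13.08 and 13.30 without treatment, 11.89 and 12.80 with LPS, 11.45 and 11.77 with IFNβ, 11.24 and 11.23 with LPS+zVAD, and 12.16 and 12.66 with LPS+zVAD+Nec-1 in WT cells. Ifnar1-/- Atg5 read 13.09 and 13.02 without treatment, 13.33 and 12.96 with LPS, and 12.71 and 12.71 with LPS+zVAD. WT Atg5 fell by 0.84 with LPS (SE 0.28, adjusted p = 0.0213, up to 0.377 in leave-one-out) and fell by 1.58 with IFNβ (SE 0.28, adjusted p = 0.000235). WT Atg5 fell by 1.96 with LPS+zVAD (SE 0.28, adjusted p = 1.04e-05) and fell by 1.12 when zVAD was added to LPS (SE 0.28, adjusted p = 0.0042, 0.131 without WT LPS replicate 2). WT Atg5 rose by 1.18 when Nec-1 was added to LPS+zVAD (SE 0.28, adjusted p = 0.00352, 0.0636 without WT LPS+zVAD+Nec-1 replicate 2), and the Ifnar1-/- changes were 0.09 with LPS (adjusted p = 0.889) and -0.35 with LPS+zVAD (adjusted p = 0.404). Atg12, the ubiquitin-like partner of Atg5, read 13.72 and 13.92 without treatment, 12.9996 and 13.44 with LPS, 14.61 and 14.97 with LPS+zVAD, and 13.27 and 13.92 with LPS+zVAD+Nec-1 in WT cells. Ifnar1-/- Atg12 read 14.11 and 14.09 without treatment, 13.33 and 13.46 with LPS, and 14.87 and 14.90 with LPS+zVAD. WT Atg12 rose by 0.97 with LPS+zVAD (SE 0.28, adjusted p = 0.00636, 0.0698 without WT LPS+zVAD replicate 2) and rose by 1.57 when zVAD was added to LPS (SE 0.28, adjusted p = 0.000227). WT Atg12 fell by 1.20 when Nec-1 was added to LPS+zVAD (SE 0.28, adjusted p = 0.00295, 0.0634 without WT LPS+zVAD+Nec-1 replicate 1). Ifnar1-/- Atg12 rose by 0.78 with LPS+zVAD (SE 0.28, adjusted p = 0.0419, up to 0.148 in leave-one-out) and rose by 1.49 when zVAD was added to LPS (SE 0.28, adjusted p = 0.00235).

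The Atg4 proteases, which trim LC3 before and after its lipidation, did not move together. Atg4c read 11.96 and 12.25 without treatment, 9.49 and 11.16 with LPS, 10.71 and 11.13 with IFNβ, and 9.36 and 10.31 with LPS+zVAD in WT cells, and it fell by 1.78 with LPS (SE 0.43, adjusted p = 0.00277, 0.104 without WT LPS replicate 1) and fell by 1.19 with IFNβ (SE 0.43, adjusted p = 0.04, up to 0.208 in leave-one-out). WT Atg4c fell by 2.27 with LPS+zVAD (SE 0.43, adjusted p = 0.000228). Atg4d read 12.11 and 11.84 without treatment, 12.88 and 12.55 with LPS, 13.03 and 12.75 with IFNβ, 12.60 and 12.35 with LPS+zVAD, and 13.17 and 12.87 with LPS+zVAD+Nec-1, and it rose by 0.74 with LPS (SE 0.20, adjusted p = 0.00591, up to 0.083 in leave-one-out) and rose by 0.91 with IFNβ (SE 0.20, adjusted p = 0.00149). WT Atg4d rose by 0.50 with LPS+zVAD (SE 0.20, adjusted p = 0.0421, up to 0.264 in leave-one-out) and rose by 0.54 when Nec-1 was added to LPS+zVAD (SE 0.20, adjusted p = 0.0486, up to 0.287 in leave-one-out). Atg4b read 9.57 and 9.62 without treatment, 10.01 and 10.15 with LPS, 9.31 and 9.49 with LPS+zVAD, and 10.06 and 10.22 with LPS+zVAD+Nec-1 in WT cells. Ifnar1-/- Atg4b read 9.71 and 9.86 without treatment, and 10.30 and 10.53 with LPS. WT Atg4b fell by 0.68 when zVAD was added to LPS (SE 0.19, adjusted p = 0.0102, up to 0.0832 in leave-one-out) and rose by 0.74 when Nec-1 was added to LPS+zVAD (SE 0.19, adjusted p = 0.00713, up to 0.068 in leave-one-out). Ifnar1-/- Atg4b rose by 0.63 with LPS (SE 0.19, adjusted p = 0.0229, up to 0.169 in leave-one-out). Calls of conjugation genes lost with the 75th percentile shift were Atg10 (Ifnar1-/- LPS), Atg3 (Ifnar1-/- LPS+zVAD), Atg4c (WT IFNβ), Atg4d (WT Nec-1), Atg5 (WT LPS), Atg7 (Ifnar1-/- LPS+zVAD), Atg7 (WT zVAD on LPS), Map1lc3b (WT IFNβ, LPS+zVAD) and Map1lc3b (Ifnar1-/- LPS+zVAD).

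Sqstm1 encodes the autophagy receptor p62 and is also known as a gene induced by oxidative stress. WT Sqstm1 read 14.06 and 14.24 without treatment, 14.68 and 15.33 with zVAD, 13.49 and 12.78 with LPS, 15.58 and 15.81 with LPS+zVAD, and 14.13 and 14.06 with LPS+zVAD+Nec-1. WT Sqstm1 read 12.48 and 14.37 with IFNβ, 13.38 and 15.55 with IFNβ+zVAD, and 13.42 and 15.17 with IFNβ+zVAD+Nec-1, and the 2 arrays of the IFNβ groups lay far apart. Ifnar1-/- Sqstm1 read 14.32 and 14.46 without treatment, 14.91 and 14.34 with zVAD, 15.25 and 15.25 with LPS, 16.69 and 16.57 with LPS+zVAD, and 14.98 and 14.32 with LPS+zVAD+Nec-1. Ifnar1-/- Sqstm1 read 14.42 and 14.47 with IFNβ, 15.38 and 15.09 with IFNβ+zVAD, and 14.06 and 14.31 with IFNβ+zVAD+Nec-1. In WT cells it rose by 1.54 with LPS+zVAD (SE 0.61, adjusted p = 0.0412, up to 0.149 in leave-one-out) and rose by 2.56 when zVAD was added to LPS (SE 0.61, adjusted p = 0.00275), and both LPS+zVAD arrays lay above the untreated and the LPS arrays. Ifnar1-/- Sqstm1 rose by 2.24 with LPS+zVAD (SE 0.61, adjusted p = 0.00965, up to 0.0627 in leave-one-out). The changes were -1.02 with LPS (adjusted p = 0.2) in WT and 0.86 with LPS (adjusted p = 0.358) in Ifnar1-/- cells, with a difference between the genotypes of 1.88 (adjusted p = 0.231). Another probe of Sqstm1 gave 0.00 for LPS in WT cells.

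A further list of 91 genes of the same pathways, of which 89 were on the array and passed the filter, was read for the same comparisons. Of these, 8 rose and 51 fell with LPS in WT cells, which is 8.99% and 57.3% against 16.3% and 24.8% of all genes, with a median change of -0.78. In Ifnar1-/- cells 7 rose and 40 fell, which is 7.87% and 44.9% against 10.9% and 13.9%, with a median of -0.65. With IFNβ in WT cells 8 rose and 28 fell (8.99% and 31.5% against 13.7% and 21.6%), and with LPS+zVAD 14 rose and 33 fell (15.7% and 37.1% against 18.3% and 32.7%). The 75th percentile shift gave 12 higher and 33 lower for LPS in WT, 7 and 21 for LPS in Ifnar1-/-, 15 and 17 for IFNβ, and 22 and 23 for LPS+zVAD in WT cells. The deepest fall with LPS was in Deptor, an inhibitor of mTOR, at -4.59 (SE 0.55, adjusted p = 3.66e-06), and it was -2.72 (SE 0.55, adjusted p = 0.00141) in Ifnar1-/- cells. The endolysosomal channel gene Tpcn1 was at -3.26 (SE 0.52, adjusted p = 7.21e-05) in WT and -2.61 (SE 0.52, adjusted p = 0.00134) in Ifnar1-/- cells. The lysosomal phospholipase gene Pla2g15 was at -3.09 (SE 0.42, adjusted p = 1.44e-05) in WT and -2.03 (SE 0.42, adjusted p = 0.0017) in Ifnar1-/- cells. In WT cells with LPS the autophagy receptor Optn rose, at 1.85 (SE 0.31, adjusted p = 9.67e-05), as did the receptor Tax1bp1, at 1.84 (SE 0.24, adjusted p = 7.59e-06), and the kinase Tbk1, at 1.20 (SE 0.17, adjusted p = 2.49e-05). When zVAD was added to LPS 24 rose and 13 fell in WT cells (27% and 14.6% against 12.9% and 21.7% of all genes), and 16 rose and 0 fell in Ifnar1-/- cells (18% and 0% against 4.58% and 3.67%). The 75th percentile shift gave 28 higher and 12 lower in WT and 11 higher and 0 lower in Ifnar1-/- cells. In WT cells the largest rises were in Pla2g15 (2.99), the cystine transporter gene Ctns (2.78), Deptor (2.51), the LC3 relative Gabarapl1 (2.42) and the folliculin gene Flcn (2.32). In Ifnar1-/- cells the largest rises were in Fnip2 (3.10), which encodes a partner of folliculin, Pla2g15 (2.56), Optn (2.36), Flcn (1.92) and Plekhm1 (1.89). Nec-1 added to LPS+zVAD raised 11 and lowered 20 (12.4% and 22.5% against 18.7% and 9.78% of all genes; 10 and 22 with the 75th percentile shift), the deepest falls being in Deptor (-2.66) and Pla2g15 (-2.24).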

How the data were processed

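Total RNA of 32 BMDM samples was labelled with 1 dye and hybridised to Agilent 8x60K mouse arrays. The deposited scanner files give, per spot, an intensity that Agilent Feature Extraction 11.5.1.1 had background-subtracted, and a deposited table of the series holds the authors' normalised log2 values, used here as an alternative only. From the intensities, outlier spots marked by the software (130 to 499 on an array) were removed, log2 values were averaged per probe and quantile-normalised over 55681 probes. The study's methods name quantile normalisation after a filter on probes, whereas here it came before the filter. The brightest retained probe of each gene, by its mean over all arrays, was fitted with limma 3.58.1 in R 4.3.3 on 16 group means (16 residual degrees of freedom), 15 comparisons were made and p-values were adjusted by Benjamini-Hochberg over all genes of a comparison. The steps were tested on simulated data for 1 comparison of 2 groups. Of 100 genes given a change of 1 log2 unit 39 were called, and of 100 given 2 units 73 were called, with 3 false calls. A gene that was not called may therefore have changed. Values were listed on every array for 14 genes, and for up to 20 called members with the largest change per comparison on the arrays compared; of the further list, the largest 5 rises and falls were eligible. The members and lists were chosen with earlier results of these data known. Same-numbered arrays deviated together in all 28 treatment pairs of WT (correlation 0.318 to 0.669) and all 28 of Ifnar1-/- (0.167 to 0.583), so the slide pairs them. No columns of other samples were in the table. No array held a saturated spot.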

Additional observations from a re-analysis of the deposited data

Results flagged for a closer look

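The change with LPS differed between the genotypes in 7 genes of the members and the further list, each by the interaction test of limma, given as the Ifnar1-/- change minus the WT change on the log2 scale. These are 4.58% of the 153 genes tested, against 6.63% of all genes. The members were Atg16l1 (-2.22) and Lamp2 (-0.98). The further list gave the autophagy receptors Optn (-1.93) and Tax1bp1 (-1.67), Gnptab (-1.02), which acts in mannose 6-phosphate tagging, Gabarapl1 (0.99) and Wdr45 (1.32). The change with LPS+zVAD differed in 14 genes, which are 9.15% of the 153, against 16.1% of all genes, of which 11.3% were higher and 4.78% lower. The members were Atg9a (2.76), Atg5 (1.61), Lamp1 (0.55), Atg16l1 (-1.90), Atp6v1b2 (-1.35) and Atp6v1h (-1.04). Those of the further list were all higher in Ifnar1-/- cells, namely the amino acid sensor Slc38a9 (1.92), the fusion protein Stx17 (1.66), the repressor Zkscan3 (1.55), Wdr45 (1.51), the lipid kinase subunits Pik3c3 (1.37) and Pik3r4 (1.16), the ULK1 complex member Rb1cc1 (1.34) and the sphingomyelinase Smpd1 (1.03).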

How the results depend on the processing

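With the slide as a replicate block, all 228 called values were called, and counts of members called rose from 2 to 8 (interaction for LPS), 6 to 17 (interaction for LPS+zVAD) and 11 to 24 (Ifnar1-/- zVAD on LPS), with no other count moved by over 1.5 times. In the same order, the share of all genes called rose from 6.63% to 16.8%, 16.1% to 30.8% and 8.25% to 19.5%. With the 75th percentile shift 76 calls were lost, the counts were 1 (interaction for LPS), 11 (Ifnar1-/- LPS), 14 (Ifnar1-/- LPS+zVAD) and 7 (Ifnar1-/- zVAD on LPS), and 11 of those lost changed sign: Atp6v0b 0.0277, Atp6v1f 0.0809, Lamp1 0.215 and Neu1 0.0211 with IFNβ in WT cells, Atp6v0c 0.0817 and Atp6v1f 0.0808 with LPS, Ctsd 0.263, Grn 0.142, Lamp1 0.449 and Psap 0.0857 with LPS+zVAD, and -0.0463 for the LPS+zVAD interaction of Lamp1. Of all genes that shift called 6.22% (interaction for LPS), 21.8% (Ifnar1-/- LPS), 23.6% (Ifnar1-/- LPS+zVAD) and 6.04% (Ifnar1-/- zVAD on LPS). The authors' table gave 1 for the LPS interaction and 15 for Ifnar1-/- LPS+zVAD, no filter and the mean of all probes each gave 1 for the LPS interaction, and probes above background on all arrays gave 10 for the LPS+zVAD interaction. Of all genes these fits called 4.48% and 24.1% (authors' table), 3.38% (no filter), 6.51% (mean of all probes) and 21.2% (above background on all arrays). Without the disagreeing group (Ifnar1-/- LPS+zVAD+Nec-1) the fit gave 6 and 13 for the interactions, where 9.81% and 20.2% of all genes were called. A fit of only the arrays compared, with fewer residual degrees of freedom, gave 24 (WT LPS), 15 (WT IFNβ), 15 (WT zVAD on LPS) and 0 (Nec-1 on LPS+zVAD). For WT IFNβ it called 25.3% of all genes and for Nec-1 on LPS+zVAD 0%. Of all genes, that fit called 27.7% (WT) and 29.9% (Ifnar1-/-) with LPS, and 10.7% and 12.8% for zVAD on LPS. In these 2 comparisons the smaller Ifnar1-/- share of the main fit was not seen without the spread pooled over all groups. With normexp background 20 calls were lost. The causes were not tested.

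With 1 array left out, the counts ranged from 25 (without WT untreated replicate 2) to 32 for WT LPS, 16 (without WT IFNβ replicate 1) to 21 for WT IFNβ, 28 to 36 for WT LPS+zVAD, 13 to 16 for Ifnar1-/- LPS (all under the 27 by over 1.5 times), 9 to 14 for Ifnar1-/- LPS+zVAD (all under the 23 likewise), 21 to 27 for WT zVAD on LPS, 4 to 5 for Ifnar1-/- zVAD on LPS, 14 (without WT LPS+zVAD+Nec-1 replicate 1) to 25 for Nec-1, 0 to 5 for the LPS interaction and 3 to 9 for the LPS+zVAD interaction. No called value changed sign in these fits. In the treatment comparisons this was fixed in advance, since the arrays of the groups compared did not overlap, so it is no separate support. Of the 228 values 73 were called in every alternative that tested them and every such fit, among them Lipa, Ulk1, Atg16l1, Atg7 and Wipi1 with LPS and IFNβ in WT cells, Lipa, Atp6v0d2, Ctsc and Map1lc3b with LPS in both genotypes, and Atp6v0d2, Atp6v1d and Atg2a with zVAD on LPS in both. Arrays that were not well above background limit Atg2b, Atg9b, Atp6v0e2 and Atp6v1g3, and small changes of bright genes are limited by the scaling.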
